A study of Mus musculus with 24 samples.

Results

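Diethylnitrosamine (DEN) is a liver carcinogen, and its long-term effect on liver RNA was measured here in mice that lack Smyd3, a lysine methyltransferase. The comparison was made within the knockout genotype, between DEN_KO livers and KO livers, 3 of each. Genes entered it if 3 or more of the 12 RNA libraries of the study had a value of 10 or above. That kept 16471 of 37583 genes and left out 21112, of which 7930 were at 0 in every library. The DEN_KO mice were Smyd3KO animals given 25 mg/kg of DEN in 1 intraperitoneal injection, and the KO mice were untreated Smyd3KO animals. The same contrast in wild-type mice, DEN_WT livers against WT livers with 3 of each, was used to show where the knockout differed. All 4 groups are labelled C57BL6/CBA and were killed at 8.5 months of age, and each library is labelled as its own mouse. The sources used here give neither the age at injection, nor the sex of the mice, nor whether the tissue taken held visible tumour. The knockout comes from gene-trap embryonic stem cells of 1 named clone, with the cassette in intron 5 of Smyd3. Exons upstream of intron 5 may therefore still give reads, and DEN_KO and KO livers carry the trap in every cell type. Values are read counts that the authors normalized and rounded to whole numbers, and levels are compared between livers for the same gene, not between genes. Changes are differences of log2(value + 1), a scale that makes those of low genes too small, and are given as log2 changes ± their standard error. They were tested with limma across all 16471 genes, and a gene was called higher or lower at an adjusted p below 0.05.

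DEN is activated by cytochrome P450 enzymes of pericentral hepatocytes, chiefly Cyp2e1, to an alkylating agent that damages DNA, and mice given it develop hepatocellular tumours months later. Such tumours are known to switch on genes of the fetal liver, genes of cell division and secreted tumour markers, and to lose genes of the mature hepatocyte. Smyd3 is a SET and MYND domain protein that has been described to methylate histone H3 at lysine 4 and the kinase Map3k2, and the study asked what its absence does to liver tumour formation.

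DEN changed 2460 genes in Smyd3-deficient livers, 1468 of them higher and 992 lower in DEN_KO livers. That is 14.9% of the genes tested, 8.91% higher and 6.02% lower, while the unadjusted p was under 0.05 for 5001 genes. In wild-type livers the same test called 2659 genes higher and 2223 lower in DEN_WT livers, 29.6% of the genes in all, 16.1% higher and 13.5% lower. Of the called genes, 1258 changed by more than 1 log2 unit in the knockout and 2979 in wild type. The values of the 3 DEN_KO livers lay wholly above those of the 3 KO livers for 18.6% of the genes and wholly below them for 16.5%. Leaving out any 1 of the 6 knockout libraries left between 780 and 1377 genes higher and between 390 and 780 lower. Both counts fell by more than 1.5 times without DEN_KO 2 (780 higher, 390 lower), DEN_KO 3 (888 and 465) or KO 1 (865 and 457), and the count of lower genes did so also without KO 2 (548).

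Smyd3 itself read 12, 3 and 8 in DEN_KO, against 29, 17 and 22 in KO livers. It fell further with DEN in the knockout (log2 change -1.58 ± 0.41, adjusted p = 0.022), and its DEN_KO values were all below its KO values. Smyd3 lost its call without DEN_KO 2 or KO 1 (adjusted p up to 0.082). In wild-type livers it read 57, 71 and 74 with DEN, against 79, 89 and 59 without, so that the trapped gene stayed below the wild-type level in all 6 knockout livers.

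Sums of the values ran from 23163805 to 27251742 over the 6 knockout libraries, and libraries of a group correlated with r of 0.957 to 0.978. The second principal component of the 12 libraries, with 19.9% of the variance, set the 3 DEN_KO livers (62.1 to 69.6) apart from the other 9 (-43.5 to 3.49). DEN_KO 2 stood apart from the other DEN_KO livers in several tumour markers, which are given below with its values. A trend with gene span and GC share ran through the contrast as well. Genes were put into 5 equal bins by their span in the genome. The median log2 change was 0.38 in the bin of the shortest genes, 0.11, 0.00 and -0.10 in the bins that follow and -0.10 in that of the longest. By GC share it ran from -0.25 in the lowest bin to 0.31 in the highest. Of the shortest genes 20.5% were higher in DEN_KO livers, against 2.88% of the longest. In wild type the span trend ran the other way, with medians of -0.24 for the shortest and 0.11 for the longest genes. With both trends removed by a spline fit, 881 genes (5.35%) were higher and 1270 (7.71%) lower, of which 1533 kept their call and direction. The share of higher calls was thus 59.7% as deposited and 41.0% after the correction, and calls that the correction ended are given beside the results. Whether gene length, RNA quality or tissue makeup lies behind the trend was not tested.

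Genes of the fetal liver and of liver tumours gave some of the largest changes among the lists. The lists were chosen with earlier results of these data known, so the size of their changes is only a description. Of 31 such genes 29 were tested, and 14 were higher and 0 lower in DEN_KO livers (18 and 2 at an unadjusted p under 0.05), with a median log2 change of 1.81 (1.15 without DEN_KO 2) against 0.02 over all genes. Tff3, a secreted peptide of mucosal repair that liver tumours switch on, read 2242, 7636 and 703 in DEN_KO, against 2, 14 and 24 in KO livers, the largest rise among the genes named by size (log2 change 7.78 ± 0.87, adjusted p = 0.00066). Afp encodes alpha-fetoprotein, a fetal serum protein and clinical marker of liver cancer. It read 308, 5867 and 208 in DEN_KO, against 31, 45 and 40 in KO livers (log2 change 4.21 ± 0.90, adjusted p = 0.0096). DEN_KO 2 was by far the highest liver for Afp, and all 3 DEN_KO livers lay above all 3 KO livers for both genes. The log2 change moved by more than 1.5 times for Afp without DEN_KO 2 (2.70).

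Ly6d, a small membrane-anchored protein of the Ly6 family, read 88, 1883 and 83 in DEN_KO, against 5, 4 and 3 in KO livers (log2 change 5.61 ± 0.93, adjusted p = 0.0026), again with DEN_KO 2 far above the other DEN_KO livers. The tetraspanin gene Tspan8 read 149, 295 and 69 in DEN_KO, against 15, 12 and 5 in KO livers (log2 change 3.76 ± 0.61, adjusted p = 0.0022). Akr1c18, an aldo-keto reductase that inactivates progesterone, read 46, 132 and 111 in DEN_KO, against 6, 2 and 0 in KO livers (log2 change 5.01 ± 0.59, adjusted p = 0.00068). For each of these genes the lowest DEN_KO liver was above the highest KO liver.

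Scd2, the stearoyl-CoA desaturase of fetal liver and brain, read 1313, 2036 and 921 in DEN_KO, against 127, 116 and 74 in KO livers (log2 change 3.70 ± 0.27, adjusted p = 4.2e-05). Gpc3, a heparan sulfate proteoglycan on the surface of hepatocellular carcinoma cells, read 153, 146 and 113 in DEN_KO, against 53, 59 and 18 in KO livers (log2 change 1.80 ± 0.37, adjusted p = 0.0076). Spp1, the secreted matrix protein osteopontin, read 1212, 1470 and 811 in DEN_KO, against 387, 371 and 561 in KO livers (log2 change 1.39 ± 0.27, adjusted p = 0.0056). These genes were higher in every DEN_KO liver than in any KO liver, and DEN_KO 2 did not stand apart for Gpc3. Lcn2, a siderophore-binding acute phase protein also made by tumours, read 319, 4371 and 457 in DEN_KO, against 147, 110 and 93 in KO livers (log2 change 2.90 ± 0.68, adjusted p = 0.014). Cpe, which encodes the prohormone-processing carboxypeptidase E, read 147, 586 and 52 in DEN_KO, against 12, 11 and 3 in KO livers (log2 change 4.28 ± 1.07, adjusted p = 0.019). Bex1 read 60, 210 and 18 in DEN_KO, against 6, 6 and 3 in KO livers (log2 change 3.43 ± 0.72, adjusted p = 0.0086). In these 3 genes DEN_KO 2 was the highest liver and DEN_KO 3 or DEN_KO 1 the lowest, still above every KO liver. Prom1, Abcc4 and Igdcc4 were the other members called higher. Cpe lost its call without DEN_KO 2 or KO 3 (adjusted p up to 0.082) and Prom1 without DEN_KO 2 (0.07). Abcc4 lost its call without any 1 library but DEN_KO 1 or DEN_KO 3 (up to 0.17) and Igdcc4 without DEN_KO 2 (0.071). The log2 change moved by more than 1.5 times for Lcn2 without DEN_KO 2 (1.73) and Abcc4 without DEN_KO 2 (0.70). Abcc4 was not called after the GC and span correction (adjusted p = 0.068).

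**Figure D1:**
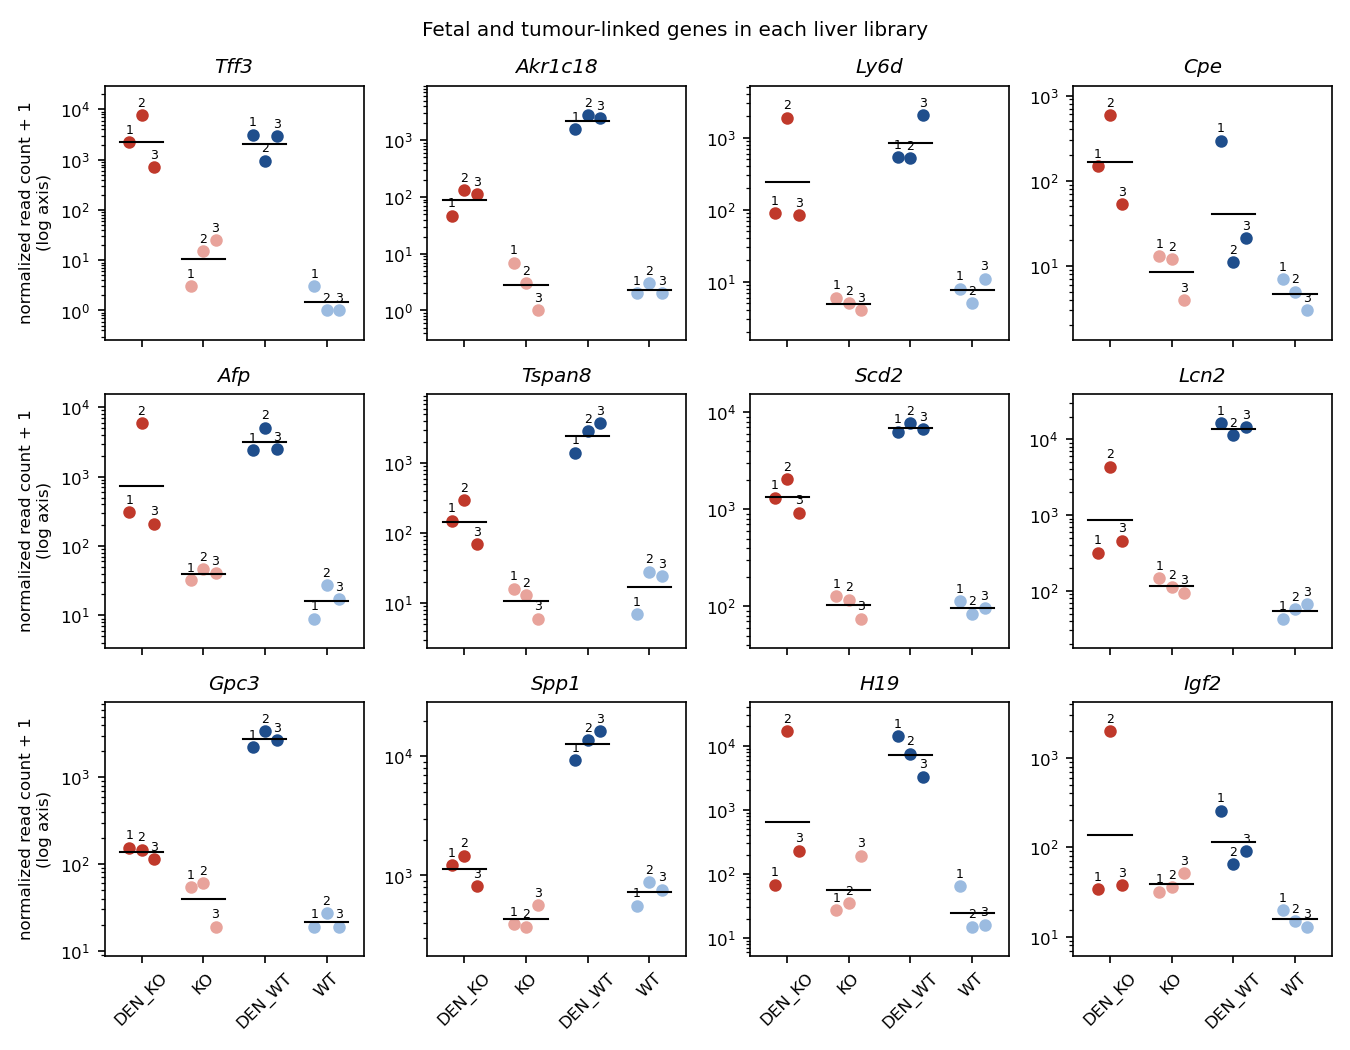
Normalized values plus 1 (log axis) of 12 genes of fetal liver and liver tumours in DEN_KO, KO, DEN_WT and WT livers, from left to right in each panel; points are livers numbered by replicate and bars are means of the log2 values (n = 3 each). For Akr1c18, Scd2 and Gpc3 the DEN_KO livers lie between the KO and the DEN_WT livers, and DEN_KO 2 is the only DEN_KO liver far above the KO livers for H19 and Igf2.

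H19, the imprinted fetal RNA, and Igf2, the fetal growth factor beside it in the genome, were high in a single DEN_KO liver and did not pass the test. H19 read 67, 16737 and 229 in DEN_KO, against 26, 34 and 190 in KO livers (log2 change 3.50 ± 1.49, adjusted p = 0.13). Igf2 read 33, 1974 and 37 in DEN_KO, against 31, 35 and 50 in KO livers (log2 change 1.81 ± 1.13, adjusted p = 0.3). Only DEN_KO 2 was far above the KO livers for both genes, and without it the H19 change was 1.15 and the Igf2 change -0.11 in log2. Among the 10 genes with the widest spread over the DEN_KO livers at a mean of at least 50, DEN_KO 2 was likewise the one high liver for Cdh17, an intestinal cadherin found in liver tumours, with 0, 224 and 4 in DEN_KO, against 2, 0 and 2 in KO livers. The milk protein gene Csn3 read 5, 374 and 3 in DEN_KO, against 1, 1 and 0 in KO livers and the protease inhibitor gene Wfdc12 read 1, 218 and 12 in DEN_KO, against 4, 2 and 0 in KO livers. Slc7a11, the cystine transporter, followed the same pattern with 4, 256 and 8 in DEN_KO, against 9, 4 and 6 in KO livers. The other 4 wide genes varied in both groups or were led by another liver, such as Ppp1r3g, a glycogen-targeting subunit of protein phosphatase 1, with 2341, 41 and 325 in DEN_KO, against 18, 60 and 121 in KO livers, and Moxd1 with 32, 4541 and 3500 in DEN_KO, against 1044, 536 and 2288 in KO livers. Ctse and Cebpe ranged from 2 to 521 and 0 to 288 over the 6 livers. The summed value of the tumour marker list was 4683 to 45426 in DEN_KO livers, against 1713 to 1933 in KO livers, and with DEN_KO 2 left out 10 members were higher and 2 lower.

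The DEN effect on the tumour markers was smaller in the knockout than in wild type for part of the list. In wild-type livers 21 of 29 were higher with DEN, with a median of 4.15, and the interaction, which is the knockout effect of DEN less the wild-type one, was negative and past the threshold for 13 and positive for 0 (background 16.6% of all genes, 8.73% positive and 7.83% negative). Gpc3 rose by 1.80 log2 units in the knockout and by 6.999 ± 0.37 in log2, adjusted p = 2.2e-07 in wild type, a difference of -5.20 ± 0.52 in log2, adjusted p = 0.00048. The difference was -4.90 ± 0.84 in log2, adjusted p = 0.0031 for Akr1c18, -2.44 ± 0.38 in log2, adjusted p = 0.002 for Scd2 and -2.76 ± 0.38 in log2, adjusted p = 0.0011 for Spp1. For Lcn2 it was -5.09 ± 0.96 in log2, adjusted p = 0.0046. For Tff3, Afp and Ly6d the interaction did not pass (log2 -2.70, -3.40 and -1.15), with DEN effects of 10.49, 7.61 and 6.77 in wild type. The 6 genes of the list of postnatal repressors of fetal liver genes gave no call among the 5 tested (0 also at an unadjusted p under 0.05 with limma). Zbtb20 read 1259, 1929 and 3290 in DEN_KO, against 3033, 3126 and 2230 in KO livers (log2 change -0.47 ± 0.34, adjusted p = 0.38), with overlapping groups, and Zhx2 is listed at 0.

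Genes of cell division had smaller changes. Of 30 mitosis genes 9 were higher and 0 lower in DEN_KO livers (16 and 0 at an unadjusted p under 0.05), 29 had a positive change, the median log2 change was 1.11, and 15 were above the KO livers in every DEN_KO liver. Over all genes 8.91% were called higher and 18.6% lay wholly above the KO livers. Ccnb2, a mitotic cyclin, read 37, 62 and 20 in DEN_KO, against 6, 4 and 2 in KO livers (log2 change 2.97 ± 0.58, adjusted p = 0.0061). Cdc20, the activator of the anaphase-promoting complex, read 43, 75 and 30 in DEN_KO, against 6, 5 and 3 in KO livers (log2 change 3.09 ± 0.63, adjusted p = 0.0077). The mitotic kinase gene Plk1 read 9, 36 and 8 in DEN_KO, against 2, 1 and 0 in KO livers (log2 change 3.04 ± 0.67, adjusted p = 0.011). No KO liver reached the lowest DEN_KO liver for any of these. Cdk1, the kinase that drives entry into mitosis, read 63, 50 and 44 in DEN_KO, against 15, 19 and 14 in KO livers (log2 change 1.65 ± 0.43, adjusted p = 0.023). Its partner cyclin gene Ccna2 read 42, 60 and 32 in DEN_KO, against 5, 14 and 8 in KO livers (log2 change 2.25 ± 0.52, adjusted p = 0.014). Ccnb1, Bub1b, Aurka and Prc1 were the other members called higher. The proliferation markers Mki67 and Top2a missed the threshold. Mki67 read 74, 140 and 69 in DEN_KO, against 17, 17 and 48 in KO livers (log2 change 1.85 ± 0.64, adjusted p = 0.068), with all DEN_KO livers above all KO livers, and Top2a read 40, 63 and 56 in DEN_KO, against 12, 22 and 32 in KO livers (log2 change 1.31 ± 0.52, adjusted p = 0.11). Cdk1 lost its call without DEN_KO 1, DEN_KO 2, KO 1 or KO 3 (adjusted p up to 0.071) and Ccna2 without DEN_KO 2 or KO 1 (up to 0.06). Ccnb1 lost its call without any 1 library but DEN_WT 2, WT 1 or WT 3 (up to 0.16) and Bub1b without DEN_KO 1, DEN_KO 2, DEN_KO 3, KO 1, KO 2, DEN_WT 3 or WT 2 (up to 0.15). Aurka lost its call without DEN_KO 1, DEN_KO 2, DEN_KO 3, KO 1, KO 3, DEN_WT 3 or WT 2 (up to 0.13) and Prc1 without any 1 knockout library but KO 1 (up to 0.1). Ccnb1 and Aurka were not called after the GC and span correction (adjusted p = 0.053 and 0.062). The mitosis count moved by more than 1.5 times with 1 library left out, to 4 higher and 0 lower without DEN_KO 1 or KO 1, 3 higher and 0 lower without DEN_KO 2 and 5 higher and 0 lower without DEN_KO 3. In wild-type livers 29 of the 30 rose with DEN, with a median of 3.17, and the interaction was negative for 4, among them Bub1b and Top2a.

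DNA replication genes did not follow. Of 30 tested, 1 was higher and 0 lower (4 and 4 at an unadjusted p under 0.05), with a median of 0.16 that was 0.05 without KO 3, 0.08 after the GC and span correction and -0.01 under quantile normalization, whereas 11 rose with DEN in wild type. Uhrf1, which links replication to maintenance of DNA methylation, was the member called, with 15, 25 and 40 in DEN_KO, against 6, 9 and 5 in KO livers (log2 change 1.78 ± 0.47, adjusted p = 0.024). Pcna, the sliding clamp of DNA polymerase, read 496, 424 and 398 in DEN_KO, against 386, 421 and 345 in KO livers (log2 change 0.19 ± 0.18, adjusted p = 0.5). Mcm5, a subunit of the replicative helicase, read 78, 62 and 67 in DEN_KO, against 82, 79 and 59 in KO livers (log2 change -0.08 ± 0.27, adjusted p = 0.87). The groups overlapped for Mcm5, and its DEN effect was smaller than in wild type (interaction -1.99 ± 0.38 in log2, adjusted p = 0.0053). Uhrf1 lost its call without DEN_KO 2, DEN_KO 3, KO 1 or KO 3 (adjusted p up to 0.099). The replication count moved by more than 1.5 times with 1 library left out, to 2 higher and 0 lower without DEN_KO 1, 0 higher and 0 lower without DEN_KO 2, DEN_KO 3 or KO 1, 1 higher and 2 lower without DEN_WT 2 and 1 higher and 1 lower without DEN_WT 3. Without KO 3 it was 0 higher and 1 lower.

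The promoters of the mitosis genes were searched for the CCAAT box and the CHR element, short motifs known from genes that are switched on in dividing cells. In windows of 250 bases before to 50 bases after the gene start (RefSeq, GRCm38.p6, both strands searched), CCAAT was present at 8 of the 8 called mitosis genes that have a window and at 20 of 25 on the list, against 41.1% of 27025 genes. The CHR element, TTTGAA, was present at 7 of the 8 and at 18 of 25, against 20.2% of all genes. The promoters of the called genes Ccnb2 (chr9:70421505-70421804, minus strand) and Cdc20 (chr4:118437294-118437593, minus strand) are shown because they hold more than 1 CCAAT box, whose letters are in capitals:
Ccnb2: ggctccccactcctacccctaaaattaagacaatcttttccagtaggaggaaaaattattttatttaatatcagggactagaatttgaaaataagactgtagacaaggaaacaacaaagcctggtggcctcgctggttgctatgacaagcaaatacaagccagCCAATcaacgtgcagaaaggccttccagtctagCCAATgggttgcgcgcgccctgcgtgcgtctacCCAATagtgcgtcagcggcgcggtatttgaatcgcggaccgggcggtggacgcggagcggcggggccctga
Cdc20: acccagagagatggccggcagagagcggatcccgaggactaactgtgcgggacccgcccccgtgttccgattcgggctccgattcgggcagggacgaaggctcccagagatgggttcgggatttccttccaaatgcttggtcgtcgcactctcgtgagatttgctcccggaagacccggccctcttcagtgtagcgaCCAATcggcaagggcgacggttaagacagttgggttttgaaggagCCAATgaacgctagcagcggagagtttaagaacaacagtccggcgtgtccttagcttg
The 3 boxes of Ccnb2 start 87, 54 and 21 bases before the gene start, and the 2 of Cdc20 start 53 and 8 bases before it. A match describes the letters of the window and does not show that a factor binds there.

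Many histone genes were higher in DEN_KO livers as well. Of 71 annotated histone genes, 32 passed the filter, 17 of those were higher and 0 lower (background 8.91% and 6.02%), and their median log2 change was 1.70. Hist1h2bh, a replication-dependent H2B gene, read 89, 123 and 105 in DEN_KO, against 9, 6 and 13 in KO livers (log2 change 3.41 ± 0.45, adjusted p = 0.00082). The linker histone gene Hist1h1c read 801, 1900 and 1599 in DEN_KO, against 578, 470 and 309 in KO livers (log2 change 1.62 ± 0.29, adjusted p = 0.0041). Hist1h2bc read 2420, 1723 and 2885 in DEN_KO, against 1125, 1141 and 1181 in KO livers (log2 change 1.00 ± 0.18, adjusted p = 0.0045). The groups did not overlap for any of the 3, which were named after their values were seen. Histone genes are short and GC-rich, and after the GC and span correction 10 were higher with a median of 1.00. In wild type 1 was higher and 1 lower, and the interaction was positive for 10, both without that correction. The histone count moved by more than 1.5 times with 1 library left out, to 10 higher and 0 lower without DEN_KO 2 or DEN_KO 3. Many histone genes are near-identical copies, so reads may have been shared among them.

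Targets of p53, the DNA damage response factor, moved in both directions, with 5 of 25 higher and 3 lower (8.91% and 6.02% over all genes). Psrc1, a spindle protein, read 33, 138 and 27 in DEN_KO, against 6, 4 and 2 in KO livers (log2 change 3.43 ± 0.55, adjusted p = 0.0022). Bax, which permeabilizes mitochondria in apoptosis, read 399, 446 and 390 in DEN_KO, against 153, 206 and 190 in KO livers (log2 change 1.17 ± 0.18, adjusted p = 0.0019). Both were higher in every DEN_KO liver than in any KO liver. Ccng1, cyclin G1, was lower, with 625, 688 and 480 in DEN_KO, against 963, 860 and 945 in KO livers (log2 change -0.64 ± 0.15, adjusted p = 0.015), and Polk, a translesion DNA polymerase, was lower with 80, 80 and 69 in DEN_KO, against 150, 117 and 162 in KO livers (log2 change -0.89 ± 0.21, adjusted p = 0.016). Phlda3, Tnfrsf10b and Plk3 were the other higher members and Perp the other lower one. Cdkn1a, the cell cycle inhibitor p21, was not called, with 343, 469 and 133 in DEN_KO, against 351, 210 and 138 in KO livers (log2 change 0.36 ± 0.51, adjusted p = 0.68). In wild-type livers 13 members rose and 0 fell, and the interaction was negative for 9, among them Cdkn1a (-3.52 ± 0.73 in log2, adjusted p = 0.0076), Btg2 (-3.55 ± 0.36 in log2, adjusted p = 0.00051) and Ccng1 (-1.02 ± 0.21 in log2, adjusted p = 0.0078). Ccng1 lost its call without DEN_KO 3 or KO 1 (adjusted p up to 0.059) and Polk without DEN_KO 3 or KO 1 (up to 0.057). Phlda3 lost its call without DEN_KO 2 or KO 3 (up to 0.071) and Tnfrsf10b without DEN_KO 2, DEN_KO 3, KO 1, KO 3, DEN_WT 3 or WT 2 (up to 0.15). Plk3 lost its call without DEN_KO 1, KO 1 or KO 2 (up to 0.058) and Perp without DEN_KO 2, DEN_KO 3, KO 1, KO 2, KO 3 or DEN_WT 3 (up to 0.13). The log2 change moved by more than 1.5 times for Phlda3 without DEN_KO 2 (1.22) and Tnfrsf10b without KO 3 (1.21). Phlda3 and Plk3 were not called after the GC and span correction (adjusted p = 0.059 and 0.054). The p53 count moved by more than 1.5 times with 1 library left out, to 3 higher and 2 lower without DEN_KO 2 or KO 3, 5 higher and 0 lower without DEN_KO 3 and 4 higher and 0 lower without KO 1.

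Immediate early genes, which respond to stimuli within minutes, were higher for 5 of 15 and lower for 0 (11 and 0 at an unadjusted p under 0.05), with a median of 1.39. Nr4a1, an orphan nuclear receptor, read 430, 127 and 340 in DEN_KO, against 16, 7 and 2 in KO livers, one of the largest rises in the contrast (log2 change 5.16 ± 0.60, adjusted p = 0.00066). Ier3, a survival factor of stressed cells, read 51, 89 and 124 in DEN_KO, against 17, 24 and 11 in KO livers (log2 change 2.25 ± 0.39, adjusted p = 0.0034). Atf3, a stress-induced transcription factor, read 84, 129 and 32 in DEN_KO, against 14, 22 and 8 in KO livers (log2 change 2.29 ± 0.50, adjusted p = 0.011). All 3 were higher in every DEN_KO liver. Jun read 666, 751 and 734 in DEN_KO, against 290, 462 and 151 in KO livers (log2 change 1.39 ± 0.38, adjusted p = 0.029). Dusp1, a phosphatase that shuts off MAP kinases, read 1144, 542 and 1270 in DEN_KO, against 568, 274 and 480 in KO livers (log2 change 1.13 ± 0.35, adjusted p = 0.043), with overlapping groups for Dusp1. Fos and Egr1 missed the threshold at adjusted p of 0.052 and 0.06, although no KO liver reached a DEN_KO liver. Atf3 lost its call without DEN_KO 2 (adjusted p of 0.0504) and Jun without any 1 knockout library but KO 2 (up to 0.089). Dusp1 lost its call without any 1 library but DEN_KO 2, KO 1, WT 2 or WT 3 (up to 0.15). Jun and Dusp1 were not called after the GC and span correction (adjusted p = 0.13 and 0.2). After the correction 3 members were called higher. The immediate early count moved by more than 1.5 times with 1 library left out, to 3 higher and 0 lower without DEN_KO 2 or DEN_KO 3. These genes also respond to handling and time of killing, whose part was not tested.

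Genes of growth signalling and proto-oncogenes changed little, with 2 of 26 higher and 1 lower, and 0 in either direction after the GC and span correction. The uncorrected counts were no larger than the shares over all genes, 8.91% higher and 6.02% lower. Jun and Fgfr4, the hepatocyte receptor for intestinal FGF, were the higher ones. Fgfr4 read 1964, 1737 and 1787 in DEN_KO, against 1230, 1292 and 966 in KO livers (log2 change 0.66 ± 0.15, adjusted p = 0.013). Map3k2, the kinase described as a Smyd3 substrate, was the lower one, with 394, 279 and 424 in DEN_KO, against 556, 509 and 580 in KO livers (log2 change -0.60 ± 0.18, adjusted p = 0.04). Myc, a growth-promoting transcription factor, read 77, 177 and 110 in DEN_KO, against 104, 120 and 191 in KO livers (log2 change -0.22 ± 0.33, adjusted p = 0.69) in overlapping groups, and its DEN effect differed from wild type by -2.51 ± 0.47 in log2, adjusted p = 0.0047. Ccnd1, cyclin D1, read 457, 1180 and 527 in DEN_KO, against 311, 390 and 310 in KO livers (log2 change 0.97 ± 0.37, adjusted p = 0.096), with every DEN_KO liver above every KO liver. Map3k2 lost its call without DEN_KO 1, DEN_KO 2, KO 1, KO 2, KO 3 or DEN_WT 3 (adjusted p up to 0.17). Fgfr4 and Map3k2 were not called after the GC and span correction (adjusted p = 0.052 and 0.12). In wild type 9 members were higher and 1 lower, and the interaction was negative for 5. The growth count moved by more than 1.5 times with 1 library left out, to 1 higher and 0 lower without DEN_KO 1, DEN_KO 2 or KO 1.

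Many interferon-stimulated genes were higher in DEN_KO livers. Interferon induces these genes through factors that bind the interferon-stimulated response element, and their products restrict viruses and recruit T cells. Of 27 genes 15 were higher and 0 lower in DEN_KO livers (20 and 0 at an unadjusted p under 0.05), all 27 had a positive change, the median was 1.27 and 20 were above every KO liver in every DEN_KO liver. The shares over all genes were 8.91% called higher and 18.6% wholly above the KO livers. Oas1a, an oligoadenylate synthetase that activates RNA decay, read 205, 212 and 403 in DEN_KO, against 87, 42 and 71 in KO livers (log2 change 2.01 ± 0.37, adjusted p = 0.0044). Its neighbour Oas1g read 79, 94 and 163 in DEN_KO, against 15, 12 and 26 in KO livers (log2 change 2.60 ± 0.42, adjusted p = 0.0023). Usp18, which removes the ubiquitin-like modifier Isg15 and limits interferon signalling, read 243, 296 and 325 in DEN_KO, against 49, 36 and 138 in KO livers (log2 change 2.17 ± 0.39, adjusted p = 0.0038). Irf7, the factor that amplifies the response, read 1567, 1326 and 3273 in DEN_KO, against 515, 272 and 657 in KO livers (log2 change 2.07 ± 0.41, adjusted p = 0.007). DEN_KO 3 was the highest liver for all 4 and the 2 groups did not overlap for any of them. The interaction of Oas1a lost its call without any 1 library but DEN_KO 3, KO 2 or WT 1 (adjusted p up to 0.11).

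The chemokine gene Cxcl10 read 88, 159 and 92 in DEN_KO, against 25, 22 and 34 in KO livers (log2 change 1.99 ± 0.48, adjusted p = 0.017). Oasl2 read 161, 147 and 171 in DEN_KO, against 51, 71 and 69 in KO livers (log2 change 1.33 ± 0.27, adjusted p = 0.007). Bst2, the tether that holds virus particles on the cell surface, read 4212, 4717 and 5438 in DEN_KO, against 1466, 2020 and 1313 in KO livers (log2 change 1.60 ± 0.27, adjusted p = 0.0028). Mx2, a dynamin-like antiviral protein, read 243, 267 and 290 in DEN_KO, against 103, 87 and 90 in KO livers (log2 change 1.50 ± 0.24, adjusted p = 0.002). Ifit3, an RNA sensor adaptor, read 301, 399 and 441 in DEN_KO, against 141, 132 and 210 in KO livers (log2 change 1.25 ± 0.31, adjusted p = 0.019). No KO liver reached a DEN_KO liver for these 5 genes, the last 3 of which were named after their values were seen. Isg15 read 226, 348 and 348 in DEN_KO, against 112, 186 and 164 in KO livers (log2 change 1.00 ± 0.35, adjusted p = 0.073) and did not pass the test. Ifit2, Ifi44, Ifi27l2a, Oasl1, Gbp3 and Cxcl9 were the other members called higher. Cxcl10 lost its call without DEN_KO 2, KO 1 or KO 2 (adjusted p up to 0.072) and Ifit3 without DEN_KO 2, DEN_KO 3, KO 1 or KO 2 (up to 0.069). Ifit2 lost its call without DEN_KO 2, DEN_KO 3, KO 1 or KO 2 (up to 0.089) and Ifi44 without any 1 library but KO 3, DEN_WT 1, DEN_WT 2 or WT 1 (up to 0.14). Ifi27l2a lost its call without DEN_KO 2, DEN_KO 3, KO 1 or KO 2 (up to 0.1) and Oasl1 without any 1 library but KO 1 or DEN_WT 2 (up to 0.14). Gbp3 lost its call without DEN_KO 3, KO 1, KO 2 or KO 3 (up to 0.1) and Cxcl9 without any 1 knockout library but KO 3 (up to 0.09). The log2 change moved by more than 1.5 times for Ifi44 without KO 1 (1.10) and Oasl1 without KO 2 (0.73). The interaction of Bst2 lost its call without DEN_KO 3, KO 1, DEN_WT 2, DEN_WT 3 or WT 1 (adjusted p up to 0.062). Ifi27l2a and Oasl1 were not called after the GC and span correction (adjusted p = 0.075 and 0.079). After the correction 13 members were higher. The interferon count moved by more than 1.5 times with 1 library left out, to 8 higher and 0 lower without DEN_KO 2, DEN_KO 3 or KO 1 and 7 higher and 0 lower without KO 2. The summed value of the list was 13861 to 20114 in DEN_KO livers, against 8096 to 8718 in KO livers.

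In wild-type livers 11 of the 27 rose with DEN, with a median of 0.85, and the interaction passed for 1 gene in each direction, so the difference between genotypes in this list was near or below the background of 8.73% and 7.83%. Oas1a was the one with the smaller effect in the knockout (-1.64 ± 0.52 in log2, adjusted p = 0.048). Bst2 was the one with the larger effect, since it did not change past the threshold in wild type (0.20 ± 0.27 in log2, adjusted p = 0.61; interaction 1.40 ± 0.38 in log2, adjusted p = 0.025).

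Promoter windows of 21 of the 27 genes were in the RefSeq table. The core of the interferon-stimulated element, GAAA followed by any 2 bases and GAAA, was present on either strand at 14 of the 21 and at 6 of the 12 called genes with a window (Ifit3, Oas1a, Oas1g, Gbp3, Cxcl10 and Bst2), against 3.99% of 27025 genes. The windows of Ifit3 (chr19:34583279-34583578, plus strand) and Oas1a (chr5:120907476-120907775, minus strand) are shown because each holds more than 1 match, given in capitals:
Ifit3: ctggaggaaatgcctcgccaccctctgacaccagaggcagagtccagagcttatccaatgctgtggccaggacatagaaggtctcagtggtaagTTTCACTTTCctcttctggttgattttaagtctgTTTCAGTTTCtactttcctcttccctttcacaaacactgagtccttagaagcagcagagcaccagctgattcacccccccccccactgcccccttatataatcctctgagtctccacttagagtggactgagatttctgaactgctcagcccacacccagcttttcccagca
Oas1a: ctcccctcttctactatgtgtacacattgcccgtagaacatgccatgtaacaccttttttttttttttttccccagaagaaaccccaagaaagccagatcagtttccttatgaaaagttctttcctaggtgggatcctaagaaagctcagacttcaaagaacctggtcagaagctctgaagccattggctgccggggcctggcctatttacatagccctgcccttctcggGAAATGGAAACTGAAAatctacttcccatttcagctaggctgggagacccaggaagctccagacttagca
The matches of Ifit3 lie 156 and 122 bases before the gene start on the opposite strand, so the capitals read as the reverse complement of the core. Those of Oas1a lie 20 and 14 bases before it and overlap each other.

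**Figure D2:**
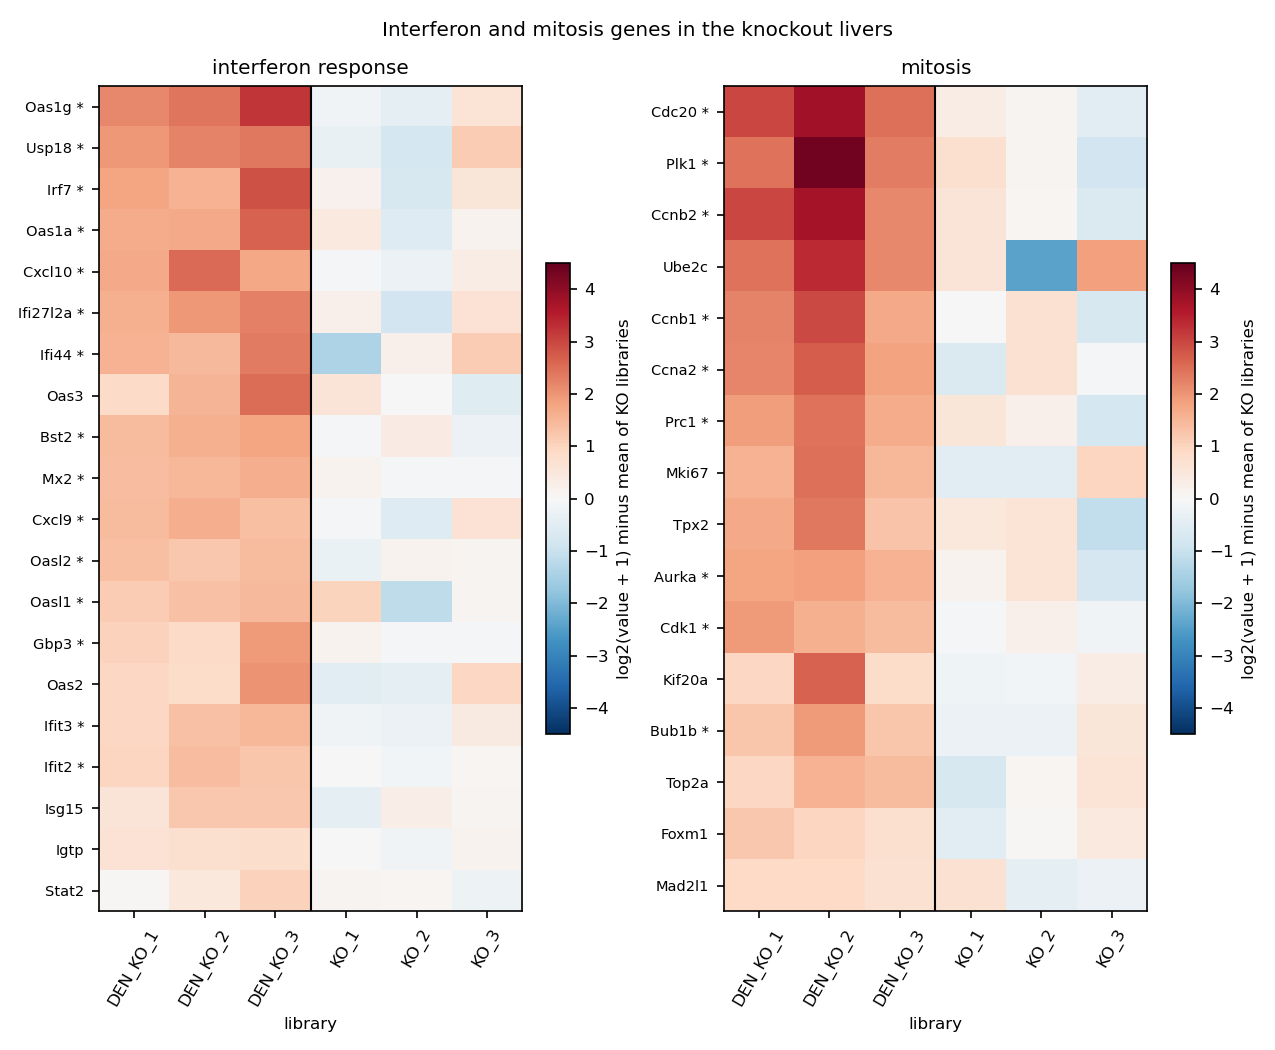
Heat map of log2(value + 1) minus the mean of the KO livers for the 20 interferon-stimulated genes and 16 mitosis genes with an unadjusted p under 0.05 (rows) in DEN_KO 1 to 3 and KO 1 to 3 (columns, left to right); red is above and blue below the KO mean, and an asterisk marks an adjusted p below 0.05 in limma. All rows have a positive mean change, and 15 interferon and 9 mitosis genes are past the threshold.

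Some genes of antigen presentation by MHC class I were higher, and H2-Aa and H2-Ab1 of class II did not pass the test. Of 14 genes tested 5 were higher and 0 lower (6 and 0 at an unadjusted p under 0.05), with a median of 0.65 (0.39 after the GC and span correction). H2-T23, a non-classical class I gene, read 6189, 5751 and 6995 in DEN_KO, against 1820, 2190 and 2772 in KO livers (log2 change 1.50 ± 0.22, adjusted p = 0.0015). H2-D1, a classical one, read 15027, 14314 and 18277 in DEN_KO, against 7197, 6902 and 8904 in KO livers (log2 change 1.05 ± 0.19, adjusted p = 0.0035). Psmb8, a subunit of the immunoproteasome that cuts peptides for class I, read 614, 748 and 1016 in DEN_KO, against 310, 311 and 272 in KO livers (log2 change 1.38 ± 0.25, adjusted p = 0.0041). Every DEN_KO liver was above every KO liver for these 3, and H2-K1 and H2-Q7 were called as well. B2m, Tap1, Tap2 and Tapbp of the class I pathway were not called, and the last 3 were named after their values were seen. The class II genes H2-Aa and H2-Ab1 read 600, 911 and 675 in DEN_KO, against 628, 780 and 1102 in KO livers (log2 change -0.18 ± 0.33, adjusted p = 0.75) and 594, 840 and 746 in DEN_KO, against 596, 860 and 545 in KO livers (log2 change 0.14 ± 0.32, adjusted p = 0.81), with overlapping groups. H2-K1 lost its call without DEN_KO 2, DEN_KO 3, KO 1, KO 2 or WT 2 (adjusted p up to 0.13) and H2-Q7 without DEN_KO 2, DEN_KO 3 or KO 1 (up to 0.058). H2-K1 and H2-Q7 were not called after the GC and span correction (adjusted p = 0.28 and 0.16). The antigen presentation count moved by more than 1.5 times with 1 library left out, to 3 higher and 0 lower without DEN_KO 2, DEN_KO 3 or KO 1. Class I genes are similar in sequence, so reads may have been shared among them, and Psmb9 is listed at 0 in all 12 libraries.

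Some markers of immune cells were higher, and most did not pass the test. In bulk RNA, more cells of a type and more RNA per cell cannot be told apart. Of 26 macrophage genes 5 were higher and 0 lower (11 and 0 at an unadjusted p under 0.05), 24 had a positive change, and 12 lay wholly above and 1 wholly below the KO livers. Over all genes 8.91% were called higher, 18.6% lay wholly above and 16.5% wholly below. After the GC and span correction 2 macrophage genes were higher. The complement genes C1qa and C1qc read 1102, 1222 and 1631 in DEN_KO, against 396, 506 and 844 in KO livers (log2 change 1.23 ± 0.38, adjusted p = 0.046) and 1234, 1252 and 2104 in DEN_KO, against 521, 715 and 535 in KO livers (log2 change 1.34 ± 0.37, adjusted p = 0.03). Lgals3, galectin-3 of activated macrophages, read 124, 83 and 114 in DEN_KO, against 59, 17 and 24 in KO livers (log2 change 1.83 ± 0.46, adjusted p = 0.019). Cd68, a lysosomal marker, read 189, 217 and 231 in DEN_KO, against 109, 77 and 143 in KO livers (log2 change 0.99 ± 0.30, adjusted p = 0.043). No KO liver reached a DEN_KO liver for C1qa, C1qc, Lgals3 or Cd68. The Kupffer cell markers Clec4f, Cd5l and Vsig4 missed the threshold, with adjusted p of 0.2, 0.14 and 0.14, although the groups did not overlap. Clec4f read 3344, 3266 and 4621 in DEN_KO, against 2237, 2145 and 2640 in KO livers. Timd4 and Marco, further Kupffer cell markers on the list, overlapped between the groups. Cd163 had a negative change, with 168, 228 and 353 in DEN_KO, against 430, 320 and 366 in KO livers (log2 change -0.63). Timd4, Marco and Cd163 were not called and were named after their values were seen. C1qa lost its call without any 1 library but KO 3, DEN_WT 1, DEN_WT 2 or WT 1 (adjusted p up to 0.16) and C1qc without DEN_KO 2, DEN_KO 3, KO 1 or KO 3 (up to 0.11). Lgals3 lost its call without DEN_KO 1, DEN_KO 3, KO 2 or KO 3 (up to 0.069) and Cd68 without any 1 library but KO 3, DEN_WT 1, DEN_WT 2 or WT 1 (up to 0.14). C1qa, C1qc and Cd68 were not called after the GC and span correction (adjusted p = 0.18, 0.1 and 0.21). The summed value of the macrophage list was 18418 to 22932 in DEN_KO livers, against 11342 to 13049 in KO livers. The macrophage count moved by more than 1.5 times with 1 library left out, to 2 higher and 0 lower without DEN_KO 1, DEN_KO 3, KO 1 or KO 2, 1 higher and 0 lower without DEN_KO 2, 9 higher and 0 lower without DEN_WT 2 and 3 higher and 0 lower without DEN_WT 3, WT 2 or WT 3.

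Few markers of lymphocytes and neutrophils passed the filter on low values. Of 9 B and plasma cell genes tested 3 were higher, among them Cd79b, a subunit of the B cell receptor, with 36, 54 and 17 in DEN_KO, against 2, 0 and 3 in KO livers (log2 change 3.86 ± 0.64, adjusted p = 0.0025), and Ighm, the immunoglobulin mu chain, with 361, 799 and 530 in DEN_KO, against 218, 210 and 153 in KO livers (log2 change 1.48 ± 0.44, adjusted p = 0.039). Igkc was the third. Outside the DEN_KO livers Cd79b reached 10 only in WT 1, with 11, so it passed the filter only through the group where it is high. Cd79b had no DEN effect past the threshold in wild type (-0.14 ± 0.64 in log2, adjusted p = 0.89), and the difference between genotypes was 4.003 ± 0.90 in log2, adjusted p = 0.011. Because of the filter these values of Cd79b are a description only. Ms4a1, the defining B cell gene, read 15, 10 and 9 in DEN_KO, against 7, 9 and 6 in KO livers (log2 change 0.55 ± 0.54, adjusted p = 0.53). Of 14 T and NK cell genes tested 1 was higher, the chemokine gene Ccl5, with 32, 32 and 37 in DEN_KO, against 4, 7 and 8 in KO livers (log2 change 2.28 ± 0.53, adjusted p = 0.014), while Cd3e read 6, 10 and 9 in DEN_KO, against 10, 2 and 6 in KO livers. Of 5 neutrophil genes tested 2 were higher, Csf3r and S100a9, an antimicrobial calcium-binding protein. S100a9 read 53, 23 and 20 in DEN_KO, against 5, 2 and 2 in KO livers (log2 change 2.99 ± 0.66, adjusted p = 0.011). The other neutrophil genes tested, S100a8, Cxcr2 and Ltf, were not called, with log2 changes of 1.93, -0.74 and -0.80. Without any 1 knockout library 1 neutrophil gene was higher, and without KO 3 another was lower. After the GC and span correction 1 B cell and 1 neutrophil gene were higher. Ighm lost its call without any 1 knockout library but DEN_KO 1 (adjusted p up to 0.15) and Igkc without DEN_KO 2, KO 1 or KO 3 (up to 0.096). Ccl5 lost its call without KO 1 (0.054) and Csf3r without any 1 library but DEN_WT 1, DEN_WT 2, WT 1 or WT 3 (up to 0.12). Ighm, Igkc and Csf3r were not called after the GC and span correction (adjusted p = 0.12, 0.15 and 0.053). The B cell count moved by more than 1.5 times with 1 library left out, to 1 higher and 0 lower without DEN_KO 2, KO 1 or KO 3. The summed values were 5743 to 8745 in DEN_KO livers against 5286 to 7115 in KO livers for the B cell list, most of it from Sdc1, a proteoglycan of plasma cells that hepatocytes also make, 213 to 223 in DEN_KO livers against 140 to 199 in KO livers for the T and NK list and 165 to 223 in DEN_KO livers against 90 to 197 in KO livers for the neutrophil list. Sdc1 read 4703, 6640 and 6618 in DEN_KO, against 6565, 6545 and 4866 in KO livers (log2 change -0.01) and, like Cxcr2 and Ltf, was named after its values were seen. The part of such cells in the interferon and class I changes was not tested.

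Genes of fibrosis gave a smaller share of higher calls than the 8.91% over all genes. Those of endothelium and bile duct cells gave a larger share, on few calls. Of 25 stellate cell and fibrosis genes 1 was higher, Tagln, a smooth muscle actin-binding protein, with 124, 146 and 92 in DEN_KO, against 59, 59 and 40 in KO livers (log2 change 1.18 ± 0.33, adjusted p = 0.03), and 5 had an unadjusted p under 0.05, all higher. Col1a1, the main fibrillar collagen, read 44, 113 and 72 in DEN_KO, against 44, 26 and 29 in KO livers (log2 change 1.12 ± 0.51, adjusted p = 0.16) and Col3a1 268, 393 and 231 in DEN_KO, against 452, 335 and 236 in KO livers (log2 change -0.18 ± 0.35, adjusted p = 0.76). Both overlapped between the groups, and their DEN effects were smaller than in wild type (interaction -2.64 ± 0.73 in log2, adjusted p = 0.026 for Col1a1 and -2.13 ± 0.49 in log2, adjusted p = 0.012 for Col3a1). Of 33 collagen genes 1 was higher, against 15 higher and 2 lower with DEN in wild type, and the interaction was negative for 10. Tagln lost its call without any 1 knockout library but DEN_KO 3 (adjusted p up to 0.11). The interaction of Col1a1 lost its call without DEN_KO 1, DEN_KO 3, KO 1 or WT 3 (adjusted p up to 0.065). Tagln was not called after the GC and span correction (adjusted p = 0.08).

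Among 20 endothelial genes 3 were higher and 0 lower (8 and 0 at an unadjusted p under 0.05). Pecam1 read 478, 543 and 492 in DEN_KO, against 312, 294 and 387 in KO livers (log2 change 0.61 ± 0.16, adjusted p = 0.021). Flt4, the lymphatic VEGF receptor, read 785, 700 and 698 in DEN_KO, against 448, 420 and 468 in KO livers (log2 change 0.71 ± 0.18, adjusted p = 0.021). Cd34, which capillarized vessels of liver tumours express, read 62, 76 and 40 in DEN_KO, against 37, 12 and 22 in KO livers (log2 change 1.38 ± 0.37, adjusted p = 0.025). The sinusoidal genes Stab2 and Clec4g were not called, and Clec4g read 1331, 1242 and 1572 in DEN_KO, against 1327, 1135 and 1159 in KO livers (log2 change 0.19 ± 0.20, adjusted p = 0.56). In wild type 12 were higher, and the interaction was negative for 5, Cd34 among them (-2.14 ± 0.52 in log2, adjusted p = 0.015). Of 12 bile duct genes tested 2 were higher, Spp1 and Krt23, a keratin, with 121, 147 and 119 in DEN_KO, against 61, 16 and 35 in KO livers (log2 change 1.95 ± 0.42, adjusted p = 0.01), whereas the defining keratins Krt7 and Krt19 were not called, with adjusted p of 0.76 and 0.49. Krt19 read 46, 24 and 37 in DEN_KO, against 25, 32 and 16 in KO livers. Pecam1 lost its call without DEN_KO 2, DEN_KO 3, KO 1 or KO 2 (adjusted p up to 0.085) and Flt4 without any 1 knockout library but KO 3 (up to 0.066). Cd34 lost its call without DEN_KO 1, DEN_KO 2 or KO 2 (up to 0.1). Flt4 was not called after the GC and span correction (adjusted p = 0.07). The endothelial count moved by more than 1.5 times with 1 library left out, to 1 higher and 0 lower without DEN_KO 1, DEN_KO 3 or KO 1 and 0 higher and 0 lower without DEN_KO 2 or KO 2.

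**Figure D3:**
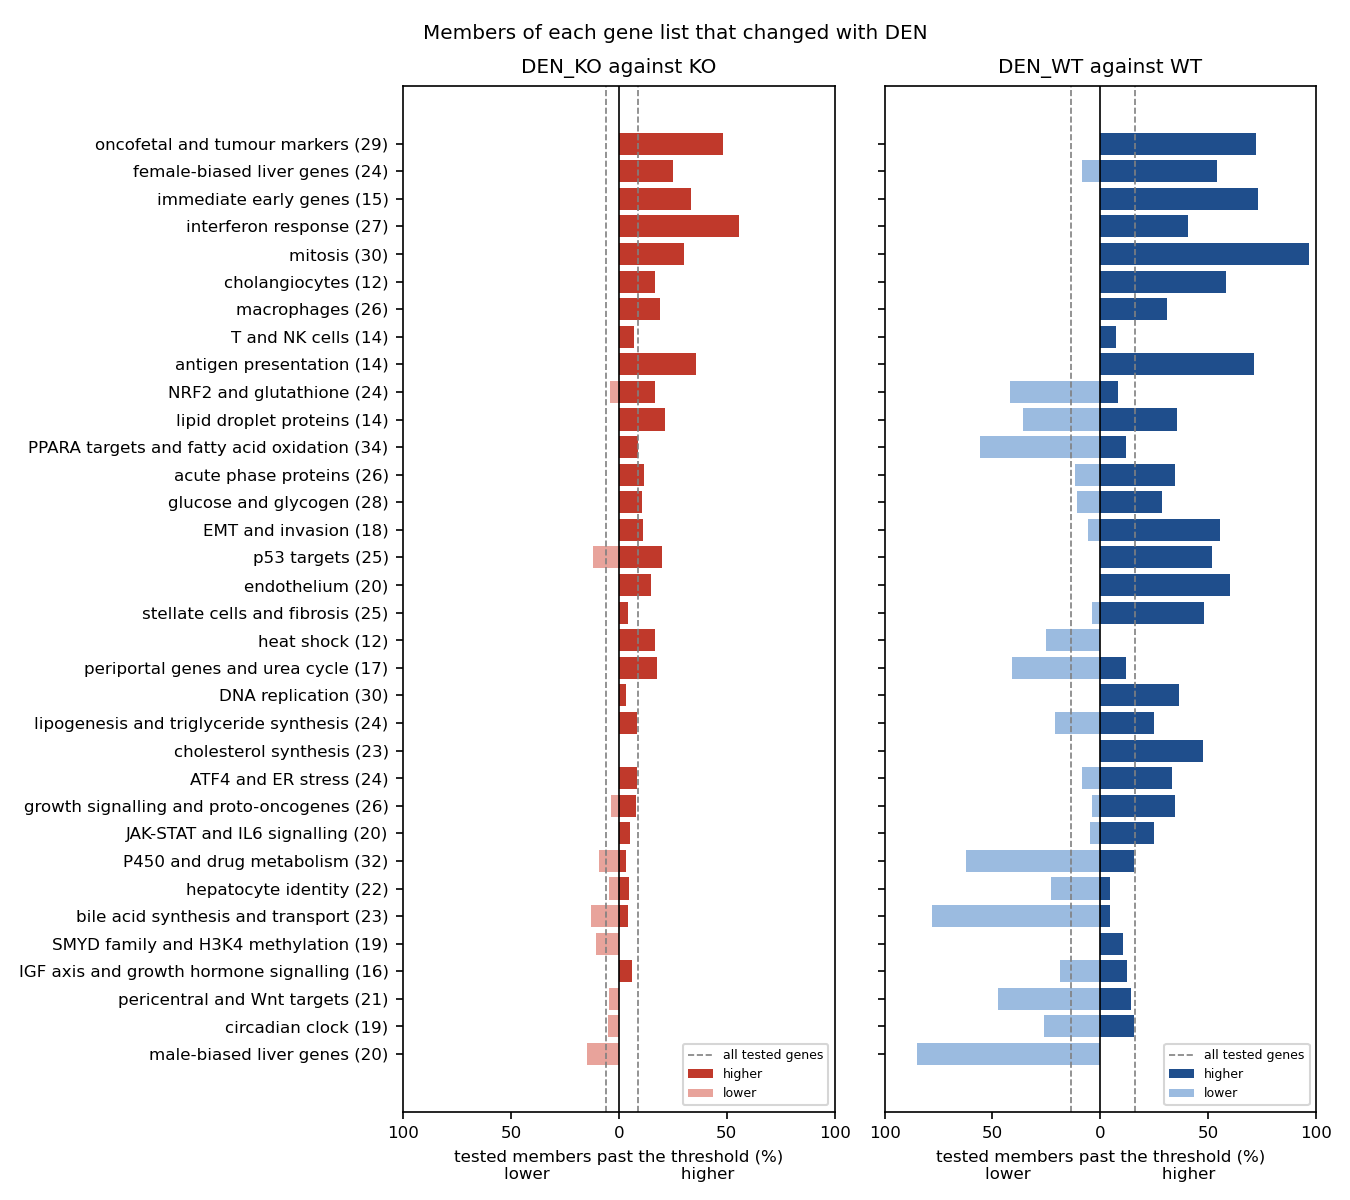
Share of tested members called higher (dark bars, to the right) or lower (light bars, to the left) at an adjusted p below 0.05, in percent, for each gene list with at least 12 tested members, in DEN_KO against KO livers (left panel) and DEN_WT against WT livers (right panel); dashed lines are the shares over all 16471 genes. The interferon and tumour marker lists have the highest shares of higher calls among the lists plotted for the knockout, and the P450, bile acid and male-biased lists reach far more lower calls in wild type. The lists were chosen with earlier results of these data known.

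Genes of the mature hepatocyte gave few calls. Of 22 hepatocyte identity genes 1 was higher, Ttr, the thyroxine carrier transthyretin, with 179066, 125224 and 115439 in DEN_KO, against 42412, 46132 and 70529 in KO livers (log2 change 1.41 ± 0.32, adjusted p = 0.012), and 1 lower, the coagulation factor gene F9, with 3378, 3256 and 3238 in DEN_KO, against 4719, 4187 and 5842 in KO livers (log2 change -0.57 ± 0.17, adjusted p = 0.045). Hnf4a, the master regulator of hepatocytes, read 15517, 13251 and 19004 in DEN_KO, against 20957, 20128 and 22080 in KO livers (log2 change -0.42 ± 0.22, adjusted p = 0.21), below the KO livers in every DEN_KO liver but short of the threshold. Of 32 genes of P450 and drug metabolism 1 was higher and 3 were lower, with a median of -0.12 (0.01 without DEN_KO 2, -0.24 without DEN_KO 1 or DEN_KO 3 and -0.20 without KO 3), whereas in wild type 5 were higher and 20 lower with a median of -1.69, and the interaction was positive for 14 and negative for 1. Cyp2e1, the enzyme that activates DEN, read 131842, 82292 and 112643 in DEN_KO, against 163206, 167783 and 185534 in KO livers (log2 change -0.69 ± 0.44, adjusted p = 0.31), with every DEN_KO liver below every KO liver. Its DEN effect was -2.93 ± 0.44 in log2, adjusted p = 0.00033 in wild type, and the difference between genotypes was 2.24 ± 0.62 in log2, adjusted p = 0.027. Ttr lost its call without KO 1 (adjusted p of 0.053) and F9 without any 1 library but KO 2, WT 1 or WT 2 (up to 0.13). The interaction of Cyp2e1 lost its call without DEN_KO 1, DEN_KO 3, KO 1, KO 2 or WT 2 (adjusted p up to 0.06). F9 was not called after the GC and span correction (adjusted p = 0.11).

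The lower P450 genes were Cyp2b10, the main target of the nuclear receptor CAR, with 757, 463 and 413 in DEN_KO, against 2764, 1925 and 3035 in KO livers (log2 change -2.26 ± 0.60, adjusted p = 0.023), and Cyp2j5, an arachidonic acid epoxygenase, with 11013, 8799 and 9146 in DEN_KO, against 15900, 15355 and 22162 in KO livers (log2 change -0.87 ± 0.22, adjusted p = 0.02). The glucuronosyltransferase gene Ugt2b1 was the third, and the highest DEN_KO liver was below the lowest KO liver for Cyp2b10 and Cyp2j5. Cyp2a4, a steroid 15-alpha-hydroxylase, was the higher one, with 8458, 24311 and 6845 in DEN_KO, against 1009, 1005 and 468 in KO livers (log2 change 3.84 ± 0.48, adjusted p = 0.0008), and its rise was larger in wild type (interaction -3.42 ± 0.68 in log2, adjusted p = 0.0062). Cyp2a4 has near-identical copies, so its reads may have been shared. Cyp2b10 lost its call without DEN_KO 2, DEN_KO 3, KO 1 or KO 3 (adjusted p up to 0.077) and Cyp2j5 without DEN_KO 2, DEN_KO 3 or KO 3 (up to 0.074). Ugt2b1 lost its call without DEN_KO 1, DEN_KO 2, KO 1 or KO 3 (up to 0.11). Cyp2j5 and Ugt2b1 were not called after the GC and span correction (adjusted p = 0.057 and 0.1). After the correction 1 member was higher and 1 lower. The P450 count moved by more than 1.5 times with 1 library left out, to 1 higher and 0 lower without DEN_KO 2 or KO 3, 1 higher and 1 lower without DEN_KO 3 or KO 1 and 2 higher and 5 lower without DEN_WT 2. The summed value of the list was 449965 to 591649 in DEN_KO livers, against 662718 to 758852 in KO livers.

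Of 21 pericentral and Wnt target genes 0 were higher and 1 was lower, Ahr, the aryl hydrocarbon receptor, with 747, 567 and 765 in DEN_KO, against 1471, 1323 and 1011 in KO livers (log2 change -0.87 ± 0.23, adjusted p = 0.025), and 1 and 2 had an unadjusted p under 0.05. Glul, the pericentral glutamine synthetase, read 8759, 8396 and 8334 in DEN_KO, against 9374, 12519 and 8961 in KO livers (log2 change -0.26 ± 0.39, adjusted p = 0.69). Axin2, a Wnt target, read 75, 179 and 143 in DEN_KO, against 364, 466 and 79 in KO livers (log2 change -0.93 ± 0.59, adjusted p = 0.31). Of 17 periportal and urea cycle genes 3 were higher and 0 lower (4 and 1 at an unadjusted p under 0.05). Asl, argininosuccinate lyase of the urea cycle, read 12687, 11621 and 14451 in DEN_KO, against 5155, 5556 and 6664 in KO livers (log2 change 1.16 ± 0.26, adjusted p = 0.011). Hsd17b13, a hepatocyte lipid droplet enzyme, read 10406, 8664 and 7079 in DEN_KO, against 2059, 2990 and 5017 in KO livers (log2 change 1.46 ± 0.29, adjusted p = 0.007). Sdsl was the third, and Asl and Hsd17b13 were above the KO livers in every DEN_KO liver. With DEN in wild type Asl fell (-1.60 ± 0.26 in log2, adjusted p = 0.00052), which made its interaction 2.76 ± 0.36 in log2, adjusted p = 0.00094. Ahr lost its call without DEN_KO 2, KO 1 or KO 2 (adjusted p up to 0.1) and Sdsl without DEN_KO 2 (0.052). Ahr was not called after the GC and span correction (adjusted p = 0.054).

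Most fatty acid genes had a positive change, and few of them were called. Of 34 PPARA targets and fatty acid oxidation genes 3 were higher and 0 lower (14 and 1 at an unadjusted p under 0.05), 28 had a positive change and the median was 0.52 (0.31 without DEN_KO 2). The share of higher calls was near the 8.91% over all genes. In wild type 4 were higher and 19 lower, with a median of -0.92, and the interaction was positive for 13 and negative for 0. Acaa1b, a peroxisomal thiolase, read 28556, 28206 and 23274 in DEN_KO, against 20336, 22432 and 12374 in KO livers (log2 change 0.58 ± 0.26, adjusted p = 0.15), above every KO liver but not called, while its effect in wild type was -2.05 ± 0.26 in log2, adjusted p = 0.0001 and the difference 2.63 ± 0.37 in log2, adjusted p = 0.0013. Acadl, a long-chain acyl-CoA dehydrogenase, was called, with 3750, 3285 and 2792 in DEN_KO, against 2104, 1852 and 2764 in KO livers (log2 change 0.56 ± 0.17, adjusted p = 0.046). Acadl lost its call without any 1 library but KO 3 or WT 1 (adjusted p up to 0.16). The PPARA count moved by more than 1.5 times with 1 library left out, to 1 higher and 0 lower without KO 2.

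Cidec, which enlarges lipid droplets, had the largest change of the lipid droplet list, with 195, 283 and 68 in DEN_KO, against 10, 16 and 21 in KO livers (log2 change 3.29 ± 0.49, adjusted p = 0.0015). Its relative Cidea read 43, 43 and 16 in DEN_KO, against 8, 1 and 5 in KO livers (log2 change 2.75 ± 0.76, adjusted p = 0.029). Both were higher in every DEN_KO liver. Crat, carnitine acetyltransferase, and Pnpla3, a lipid droplet lipase, read 887, 2356 and 755 in DEN_KO, against 550, 472 and 452 in KO livers (log2 change 1.25 ± 0.32, adjusted p = 0.021) and 266, 173 and 123 in DEN_KO, against 22, 12 and 50 in KO livers (log2 change 2.85 ± 0.56, adjusted p = 0.006). Scd2 and Pnpla3 were the 2 called of 24 lipogenesis genes, a share near the 8.91% higher over all genes. Fasn, fatty acid synthase, read 25172, 8694 and 14408 in DEN_KO, against 12066, 12310 and 15333 in KO livers (log2 change 0.16 ± 0.37, adjusted p = 0.81). Plin2, the main hepatocyte lipid droplet coat, read 8977, 24774 and 9000 in DEN_KO, against 8762, 7219 and 8785 in KO livers (log2 change 0.62 ± 0.34, adjusted p = 0.25), with DEN_KO 2 far above the other 5 livers. Cidea lost its call without DEN_KO 1, DEN_KO 2 or KO 2 (adjusted p up to 0.1) and Crat without KO 2 or KO 3 (up to 0.057). The log2 change moved by more than 1.5 times for Crat without DEN_KO 2 (0.74). Crat was not called after the GC and span correction (adjusted p = 0.056).

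None of 23 cholesterol synthesis genes passed in limma with the knockout (1 higher and 4 lower at an unadjusted p under 0.05), with a median of 0.02, against 11 higher and 0 lower with DEN in wild type. The interaction was negative for 6, positive for 0 and not past the threshold for 17. Sqle, squalene epoxidase, read 1263, 1486 and 1114 in DEN_KO, against 1383, 1133 and 1443 in KO livers (log2 change -0.04 ± 0.21, adjusted p = 0.92), and its effect of 2.15 ± 0.21 in log2, adjusted p = 1.2e-05 in wild type gave an interaction of -2.19 ± 0.29 in log2, adjusted p = 0.001. Of 23 bile acid genes 1 was higher and 3 lower, against 1 higher and 18 lower in wild type. The interaction was positive for 6 of them, negative for 1 and not past the threshold for 16. Baat, which conjugates bile acids to taurine, read 6816, 5941 and 6578 in DEN_KO, against 10578, 11944 and 13232 in KO livers (log2 change -0.88 ± 0.23, adjusted p = 0.021). Abcb11, the bile salt export pump, read 11196, 7488 and 10614 in DEN_KO, against 16767, 16402 and 16107 in KO livers (log2 change -0.77 ± 0.22, adjusted p = 0.033). The groups did not overlap for either, and Slco1a1, an organic anion transporter, was the third lower gene. Cyp7a1, the rate-limiting enzyme of bile acid synthesis, read 906, 2779 and 2159 in DEN_KO, against 1319, 1737 and 3022 in KO livers (log2 change -0.12 ± 0.65, adjusted p = 0.92). Baat lost its call without DEN_KO 2, DEN_KO 3, KO 2 or KO 3 (adjusted p up to 0.074) and Abcb11 without any 1 knockout library but DEN_KO 1 (up to 0.14). Slco1a1 lost its call without DEN_KO 1, DEN_KO 2, KO 2 or KO 3 (up to 0.098). Abcb11 and Slco1a1 were not called after the GC and span correction (adjusted p = 0.093 and 0.093). The bile acid count moved by more than 1.5 times with 1 library left out, to 0 higher and 0 lower without DEN_KO 2, KO 2 or KO 3, 1 higher and 1 lower without DEN_KO 3 and 0 higher and 2 lower without KO 1.

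Among 24 NRF2 and glutathione genes, which protect from oxidants, 4 were higher and 1 lower. Cbr3, a carbonyl reductase, read 28, 143 and 36 in DEN_KO, against 0, 4 and 0 in KO livers (log2 change 4.97 ± 0.90, adjusted p = 0.0041). Cbr1 read 1086, 1141 and 1243 in DEN_KO, against 521, 681 and 416 in KO livers (log2 change 1.13 ± 0.18, adjusted p = 0.0022). Both were higher in all DEN_KO livers, while Nqo1, the classical target, was not called, with 171, 186 and 118 in DEN_KO, against 107, 105 and 116 in KO livers (log2 change 0.50 ± 0.26, adjusted p = 0.22). Cat, catalase of peroxisomes, was lower, with 71516, 46227 and 48439 in DEN_KO, against 111831, 115305 and 113630 in KO livers (log2 change -1.06 ± 0.30, adjusted p = 0.032). The metallothionein genes Mt1 and Mt2, which bind zinc and rise in stress and the acute phase, read 1065, 1752 and 426 in DEN_KO, against 64, 146 and 255 in KO livers (log2 change 2.78 ± 0.67, adjusted p = 0.016) and 224, 338 and 80 in DEN_KO, against 22, 25 and 29 in KO livers (log2 change 2.81 ± 0.71, adjusted p = 0.02). They and Lcn2 were the 3 higher genes of 26 acute phase genes, and Saa1, serum amyloid A, was not called, with 839, 3723 and 5197 in DEN_KO, against 1480, 1227 and 2153 in KO livers (log2 change 0.68 ± 0.92, adjusted p = 0.65). The acute phase list had 22 positive changes and a median of 0.51 (0.32 after the GC and span correction). In it 14 genes lay wholly above the KO livers and 0 wholly below, against 18.6% and 16.5% of all genes. Cat lost its call without any 1 knockout library but DEN_KO 1 (adjusted p up to 0.11) and Mt1 without DEN_KO 2 or KO 1 (up to 0.069). Mt2 lost its call without DEN_KO 1, DEN_KO 2, KO 1 or KO 2 (up to 0.083). Mt2 was not called after the GC and span correction (adjusted p = 0.054). The NRF2 count moved by more than 1.5 times with 1 library left out, to 2 higher and 0 lower without DEN_KO 2, KO 1 or KO 2, 3 higher and 0 lower without DEN_KO 3 and 2 higher and 1 lower without DEN_WT 3 or WT 2. The acute phase count moved by more than 1.5 times with 1 library left out, to 1 higher and 0 lower without DEN_KO 2 or KO 1.

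Of 28 genes of glucose and glycogen metabolism 3 were higher and 0 lower (9 and 0 at an unadjusted p under 0.05). That share was near the 8.91% higher over all genes. Gpi1, glucose-6-phosphate isomerase, read 2539, 3243 and 2790 in DEN_KO, against 1055, 1328 and 1559 in KO livers (log2 change 1.13 ± 0.18, adjusted p = 0.002). The pentose phosphate genes Tkt and Pgd read 4045, 2792 and 3442 in DEN_KO, against 2125, 1754 and 2066 in KO livers (log2 change 0.78 ± 0.18, adjusted p = 0.014) and 1279, 1271 and 1218 in DEN_KO, against 945, 801 and 697 in KO livers (log2 change 0.64 ± 0.17, adjusted p = 0.028). All were above the KO livers in every DEN_KO liver. Of 24 ATF4 and ER stress genes 2 were higher, again near the share over all genes, and both were of the serine synthesis pathway. Psat1 read 35, 92 and 20 in DEN_KO, against 14, 6 and 8 in KO livers (log2 change 2.07 ± 0.58, adjusted p = 0.031) and Phgdh 9, 33 and 18 in DEN_KO, against 2, 5 and 3 in KO livers (log2 change 2.16 ± 0.61, adjusted p = 0.032), and both rose more in wild type (interaction -3.81 ± 0.82 in log2, adjusted p = 0.0094 for Psat1 and -4.65 ± 0.87 in log2, adjusted p = 0.0045 for Phgdh). Of 12 heat shock genes 2 were higher, Hspe1, the mitochondrial co-chaperonin, with 1433, 1825 and 1920 in DEN_KO, against 928, 1190 and 971 in KO livers (log2 change 0.74 ± 0.16, adjusted p = 0.0086), and Hspb1. Of 19 clock genes 1 was lower, Clock, with 525, 617 and 471 in DEN_KO, against 1021, 886 and 864 in KO livers (log2 change -0.78 ± 0.19, adjusted p = 0.017), and 1 higher and 4 lower had an unadjusted p under 0.05. The clock count was near the 6.02% lower over all genes. Tkt lost its call without DEN_KO 1 or KO 2 (adjusted p up to 0.052) and Pgd without any 1 knockout library but KO 1 (up to 0.082). Psat1 lost its call without DEN_KO 1, DEN_KO 2, KO 2 or KO 3 (up to 0.13) and Phgdh without DEN_KO 2, DEN_KO 3, KO 1 or KO 3 (up to 0.13). Hspb1 lost its call without DEN_KO 2, DEN_KO 3, KO 1 or KO 3 (up to 0.13) and Clock without DEN_KO 3 or KO 1 (up to 0.066). Tkt, Pgd, Hspe1 and Hspb1 were not called after the GC and span correction (adjusted p = 0.053, 0.057, 0.069 and 0.13). The glucose count moved by more than 1.5 times with 1 library left out, to 1 higher and 0 lower without DEN_KO 1 or KO 2. The heat shock count moved by more than 1.5 times with 1 library left out, to 5 higher and 0 lower without DEN_KO 1 and 1 higher and 0 lower without DEN_KO 2, DEN_KO 3, KO 1 or KO 3.

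Genes that differ between the sexes in mouse liver changed in part. Of 24 female-biased genes 6 were higher and 0 lower (11 and 0 at an unadjusted p under 0.05), with a median of 1.40 and 22 positive. Abcd2, a peroxisomal fatty acid transporter, read 291, 287 and 83 in DEN_KO, against 18, 19 and 11 in KO livers (log2 change 3.53 ± 0.46, adjusted p = 0.00082). Sult2a2, a hydroxysteroid sulfotransferase, read 6, 9 and 51 in DEN_KO, against 0, 0 and 2 in KO livers (log2 change 3.41 ± 0.76, adjusted p = 0.012). Cyp2a4, Prom1, Sult3a1 and Atp6v0d2 were the others, and neither Abcd2 nor Sult2a2 overlapped between the groups. Of 20 male-biased genes 0 were higher and 3 lower (0 and 4 at an unadjusted p under 0.05), with a median of -0.43. Hsd3b5, a male-specific steroid reductase of liver, read 2351, 2970 and 6216 in DEN_KO, against 10660, 9255 and 8391 in KO livers (log2 change -1.42 ± 0.40, adjusted p = 0.033). Elovl3, a fatty acid elongase, read 3306, 2640 and 2170 in DEN_KO, against 9910, 6177 and 4273 in KO livers (log2 change -1.26 ± 0.39, adjusted p = 0.047). All DEN_KO livers lay below all KO livers for both. In wild type 17 of the 20 were lower, and the interaction was positive for 8. Sult3a1 lost its call without any 1 knockout library but KO 1 (adjusted p up to 0.12) and Hsd3b5 without any 1 knockout library but DEN_KO 3 (up to 0.11). Elovl3 lost its call without any 1 library but KO 3, DEN_WT 1, DEN_WT 2 or WT 3 (up to 0.17). Hsd3b5 was not called after the GC and span correction (adjusted p = 0.056). The male-biased count moved by more than 1.5 times with 1 library left out, to 0 higher and 0 lower without DEN_KO 1, DEN_KO 2 or KO 2 and 0 higher and 1 lower without KO 1 or KO 3. The sex of the mice, which bears on both lists, is not given, and its part was not tested.

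The 21 major urinary protein (Mup) genes tested, male-biased pheromone carriers, gave 0 calls in the knockout, with a median of -0.79, against 20 lower in wild type, with a median of -3.56, and a positive interaction for 8. In the knockout 14 of the 21 lay wholly below the KO livers, against 16.5% of all genes. Only 2 had a positive change, Mup21 among them. Mup21 read 8111, 7499 and 8471 in DEN_KO, against 6624, 8484 and 5749 in KO livers (log2 change 0.22 ± 0.28, adjusted p = 0.63), with an interaction of 2.48 ± 0.40 in log2, adjusted p = 0.0024. Most Mup genes are near-identical copies, and their reads may have been shared. On the growth hormone and IGF axis 1 of 16 genes was higher, Igfbp1, a secreted IGF-binding protein, with 7564, 6499 and 1211 in DEN_KO, against 182, 105 and 487 in KO livers (log2 change 4.21 ± 0.81, adjusted p = 0.0058). Its rise was larger in wild type (8.32 ± 0.81 in log2, adjusted p = 1.3e-05), and the interaction was -4.12 ± 1.15 in log2, adjusted p = 0.028. The growth hormone targets Cish, Socs2 and Bcl6 set KO 3 apart from the other KO livers, with Cish at 154, 161 and 178 in DEN_KO, against 89, 202 and 2789 in KO livers, Socs2 at 110, 340 and 265 in DEN_KO, against 156, 292 and 1061 in KO livers and Bcl6 at 530, 933 and 1843 in DEN_KO, against 3166, 2017 and 254 in KO livers, and none of them was called. The interaction of Igfbp1 lost its call without DEN_KO 3, KO 1, KO 3, DEN_WT 2, DEN_WT 3 or WT 1 (adjusted p up to 0.066).

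Part of the ribosomal protein genes, which are short, were higher. Of 77 genes tested 32 were higher and 1 lower, with a median of 0.65, whereas with DEN in wild type 0 were higher and 2 lower, and the interaction was positive for 24. Rpl41, the smallest ribosomal protein, read 6061, 7012 and 8062 in DEN_KO, against 1280, 2603 and 1518 in KO livers (log2 change 2.03 ± 0.25, adjusted p = 0.0008), and Rpl37a was the one lower member, with 482, 354 and 661 in DEN_KO, against 886, 1274 and 1605 in KO livers (log2 change -1.33 ± 0.39, adjusted p = 0.038). Of 122 ribosomal protein pseudogenes 58 were higher and 0 lower, with a median of 1.19. Reads may have been shared between these genes and their copies, and the trend with span bears on them directly. The bin of the shortest genes had medians of 0.38 in the knockout and -0.24 in wild type. Interaction counts of the gene families are given without the GC and span correction, and the part of span in them was not tested. After the GC and span correction 15 genes were higher and 2 lower, with a median of 0.34, and 32 pseudogenes were higher. Over all pseudogenes that passed the filter 354 of 1692 were higher and 52 lower, against 1080 and 893 of 13988 protein-coding genes. Rpl37a lost its call without DEN_KO 1, DEN_KO 2, KO 2 or KO 3 (adjusted p up to 0.14). The ribosomal protein count moved by more than 1.5 times with 1 library left out, to 18 higher and 0 lower without DEN_KO 2 and 18 higher and 1 lower without DEN_KO 3 or KO 1. The pseudogene count moved by more than 1.5 times with 1 library left out, to 35 higher and 0 lower without DEN_KO 2.

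Genes of respiratory complex I gave many higher calls. Of 37 complex I (Nduf) genes 18 were higher and 0 lower, with a median of 0.67, and 14 were higher after the correction, with a median of 0.60. Ndufs6, an accessory subunit, read 1443, 1362 and 1401 in DEN_KO, against 270, 459 and 443 in KO livers (log2 change 1.88 ± 0.21, adjusted p = 0.00066). Ndufa4 read 3731, 3172 and 3369 in DEN_KO, against 664, 1448 and 975 in KO livers (log2 change 1.80 ± 0.22, adjusted p = 0.00079). Uqcrq of complex III read 7197, 7706 and 7914 in DEN_KO, against 1785, 2884 and 2618 in KO livers (log2 change 1.67 ± 0.19, adjusted p = 0.00066). In all 3 the lowest DEN_KO liver was well above the highest KO liver. In wild type 26 of the 37 fell with DEN, with a median of -0.82, so that the interaction was positive for 31, both without the correction. It was 2.99 ± 0.30 in log2, adjusted p = 0.00048 for Ndufs6 and 2.68 ± 0.27 in log2, adjusted p = 0.00048 for Uqcrq, both among the 10 smallest interaction p-values of genes with a mean of at least 50.

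Other mitochondrial families and the proteasome gave more higher than lower calls, and the lower calls were few. Over all genes 8.91% were higher and 6.02% lower. Of 14 cytochrome c oxidase (Cox) genes 4 were higher and 1 lower. Cox7a1 read 26, 34 and 29 in DEN_KO, against 3, 0 and 2 in KO livers (log2 change 3.74 ± 0.56, adjusted p = 0.0016) and Cox7a2l, a supercomplex assembly factor, was lower with 2576, 2724 and 2816 in DEN_KO, against 3972, 4152 and 4149 in KO livers (log2 change -0.60 ± 0.16, adjusted p = 0.026). Of 19 ATP synthase (Atp5) genes 4 were higher and 2 lower, and the median of 0.24 turned to -0.03 under the correction. Of 79 mitochondrial ribosomal protein genes 22 were higher and 4 lower, against 1 higher and 33 lower in wild type, with a positive interaction for 36, all without the correction. Of 40 proteasome genes 10 were higher and 3 lower, and 7 and 6 after the correction, with Psma6, a subunit of the proteasome core, at 1618, 1445 and 1172 in DEN_KO, against 486, 425 and 561 in KO livers (log2 change 1.52 ± 0.18, adjusted p = 0.00066). The members named here, other than Uqcrq and Ndufs6, were chosen after their values were seen. The complex I count moved by more than 1.5 times with 1 library left out, to 11 higher and 0 lower without DEN_KO 3 or KO 1. The mitochondrial ribosomal count moved by more than 1.5 times with 1 library left out, to 12 higher and 2 lower without DEN_KO 2 or DEN_KO 3 and 12 higher and 3 lower without KO 1. The proteasome count moved by more than 1.5 times with 1 library left out, to 6 higher and 1 lower without DEN_KO 2 or KO 1 and 7 higher and 1 lower without DEN_KO 3. The ATP synthase count moved by more than 1.5 times with 1 library left out, to 2 higher and 0 lower without DEN_KO 2 or DEN_KO 3 and 2 higher and 1 lower without KO 1. Cox7a2l lost its call without any 1 knockout library (adjusted p up to 0.072).

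**Figure D4:**
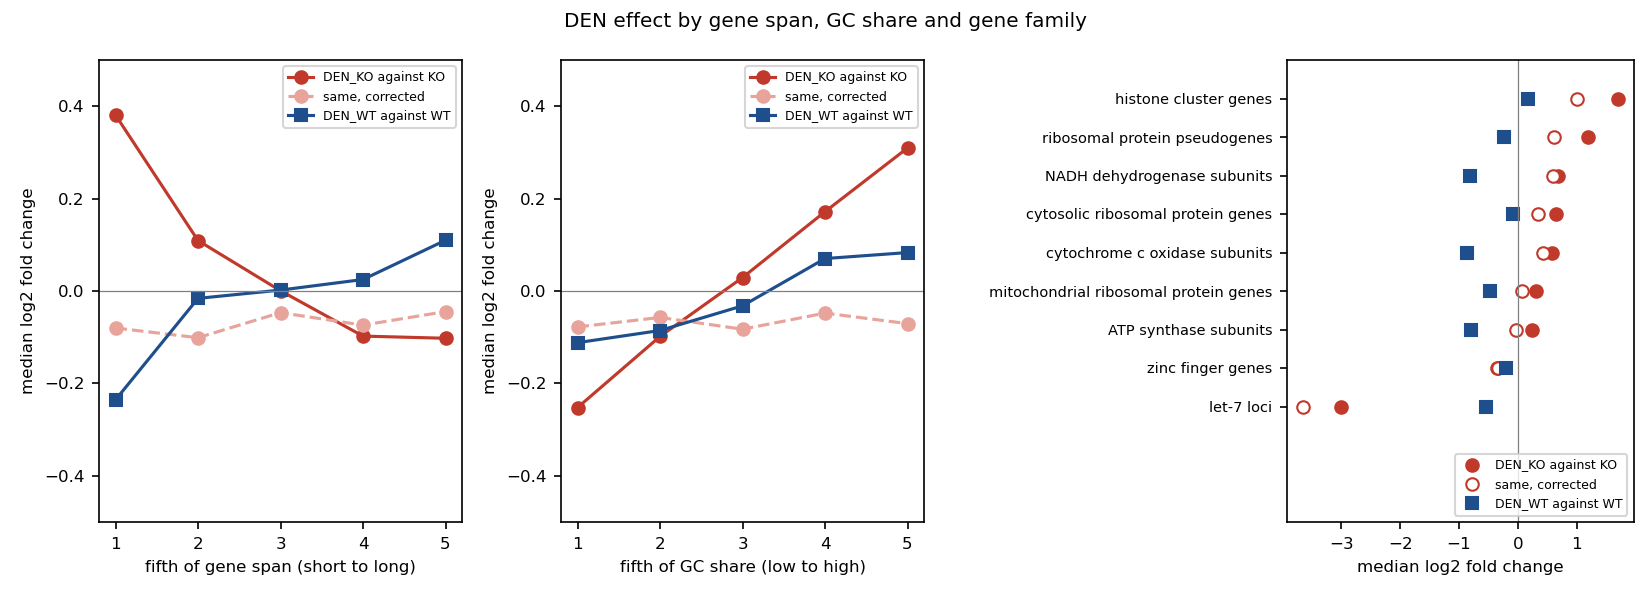
Left and middle, median log2 change by bin of gene span (short to long) and of GC share (low to high), 5 bins each, in DEN_KO against KO, in the same contrast after the GC and span correction, and in DEN_WT against WT; right, the same medians for gene families. The knockout line falls from 0.38 to -0.10 with span and rises from -0.25 to 0.31 with GC share, complex I genes keep a median of 0.60 after the correction, and let-7 loci have medians of -3.00 and -3.65 in the 2 knockout fits.

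Zinc finger genes gave more lower than higher calls. Of 336 genes named Zfp that passed the filter 4 were higher and 53 lower, with a median of -0.35, and 2 and 44 after the correction. In wild type 25 were higher and 61 lower. With 1 library left out 13 to 32 were lower, every such count more than 1.5 times below 53.

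Loci of microRNAs changed in both directions. Of 51 tested genes annotated as microRNA 11 were higher and 18 lower. Of the 36 tested rows whose symbol starts with Mir, host genes included, 8 were higher and 13 lower, and 3 and 17 after the GC and span correction. Libraries were made from mRNA isolated on beads, so a value counts reads over the locus, which can come from the primary transcript, and is not a measure of the mature microRNA. All 7 rows of let-7 loci were lower, with a median of -3.00 (-3.65 after the correction), against a median of -0.55 and 0 calls with DEN in wild type, and the interaction was negative for 5. Members of the let-7 family repress growth genes and share the seed in bases 2 to 8. The mature sequences of the lower let-7 loci and of miR-192, the liver microRNA that was lower beside them, are shown with the seed in capitals (RefSeq):
let-7a-5p: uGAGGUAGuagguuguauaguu
let-7b-5p: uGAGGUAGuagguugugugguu
let-7c-5p: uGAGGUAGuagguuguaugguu
let-7d-5p: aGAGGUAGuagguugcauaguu
let-7f-5p: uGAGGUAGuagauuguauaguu
miR-192-5p: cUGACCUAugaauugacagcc
The let-7 sequences share the seed GAGGUAG, and miR-192-5p has the seed UGACCUA.

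Mirlet7a-1 read 12, 4 and 1 in DEN_KO, against 65, 127 and 58 in KO livers (log2 change -3.97 ± 0.59, adjusted p = 0.0015), with a difference from wild type of -3.75 ± 0.83 in log2, adjusted p = 0.011. Mirlet7b read 25, 7 and 12 in DEN_KO, against 69, 199 and 101 in KO livers (log2 change -3.01 ± 0.53, adjusted p = 0.0035). Mirlet7c-2 read 12, 9 and 6 in DEN_KO, against 64, 141 and 63 in KO livers (log2 change -3.11 ± 0.40, adjusted p = 0.00082). Every DEN_KO liver was below every KO liver for the 3 loci, and KO 2 was the highest liver. Mir192 read 8, 7 and 2 in DEN_KO, against 48, 64 and 40 in KO livers (log2 change -3.08 ± 0.44, adjusted p = 0.0012). Mir122a, the locus of the most abundant liver microRNA, read 744, 1660 and 535 in DEN_KO, against 2401, 5480 and 1486 in KO livers (log2 change -1.63 ± 0.45, adjusted p = 0.029), with overlapping groups for Mir122a. Of these loci only Mirlet7b was named by rule, and the others were chosen after their values were seen. Mir122a lost its call without DEN_KO 1, DEN_KO 3, KO 1 or KO 2 (adjusted p up to 0.11). Without any 1 library 6 or 7 of the 7 let-7 loci were lower.

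The higher loci were led by Mir5102, Mir5109 and Mir5115, none of which has a mature sequence in the RefSeq table. Mir5102 read 6044, 39563 and 45160 in DEN_KO, against 1250, 1393 and 1372 in KO livers (log2 change 4.05 ± 0.81, adjusted p = 0.0068), with DEN_KO 2 and DEN_KO 3 far above DEN_KO 1. Mir5109 read 91, 684 and 673 in DEN_KO, against 6, 7 and 18 in KO livers and Mir5115 read 28, 261 and 270 in DEN_KO, against 3, 14 and 10 in KO livers, in the same order. Without DEN_KO 2, or without DEN_KO 3, only 2 of the 36 rows were higher. The share of all values at genes annotated as microRNA was 0.352% and 0.350% in DEN_KO 2 and DEN_KO 3, against 0.0697% in DEN_KO 1 and 0.0423% to 0.0654% in KO livers. Mir5115 lost its call without DEN_KO 2, DEN_KO 3 or KO 1 (adjusted p up to 0.07).

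The strongest falls by rule included germ cell and neuronal genes that were high in KO 2. Stra8, the trigger of meiosis in germ cells, read 2, 9 and 8 in DEN_KO, against 102, 638 and 77 in KO livers (log2 change -4.74 ± 0.78, adjusted p = 0.0025). Rhox8, a homeobox gene of the reproductive tract, read 35, 54 and 29 in DEN_KO, against 399, 2287 and 230 in KO livers (log2 change -3.93 ± 0.79, adjusted p = 0.0072). Neither changed past the threshold with DEN in wild type (log2 0.20 and -0.32), and the difference was -4.94 ± 1.11 in log2, adjusted p = 0.011 for Stra8 and -3.62 ± 1.12 in log2, adjusted p = 0.043 for Rhox8. Rab3c and Nhlh2 were highest in KO 2 too, with Rab3c at 38, 6 and 8 in DEN_KO, against 53, 530 and 43 in KO livers (log2 change -3.00 ± 0.83, adjusted p = 0.029) and Nhlh2 at 4, 10 and 10 in DEN_KO, against 47, 227 and 19 in KO livers (log2 change -2.83 ± 0.72, adjusted p = 0.021). Stc1, the secreted calcium regulator stanniocalcin 1, was highest in KO 3, with 13, 6 and 8 in DEN_KO, against 44, 77 and 259 in KO livers (log2 change -3.34 ± 0.54, adjusted p = 0.0022). Rab3c lost its call without DEN_KO 2, DEN_KO 3 or KO 2 (adjusted p up to 0.11) and Nhlh2 without DEN_KO 1 or KO 2 (up to 0.069). The log2 change moved by more than 1.5 times for Rab3c without KO 2 (-1.85) and Nhlh2 without KO 2 (-1.87). The interaction of Rhox8 lost its call without any 1 library but KO 3, DEN_WT 2, WT 1 or WT 3 (adjusted p up to 0.1).

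Mdga1, a membrane-anchored cell adhesion protein, fell evenly, with 87, 73 and 38 in DEN_KO, against 430, 350 and 276 in KO livers (log2 change -2.46 ± 0.39, adjusted p = 0.0021), and its DEN effect in wild type was -0.10 ± 0.39 in log2, adjusted p = 0.87, a difference of -2.35 ± 0.55 in log2, adjusted p = 0.014. Zbtb16, a zinc finger repressor induced by glucocorticoids, read 208, 188 and 704 in DEN_KO, against 1837, 1593 and 1406 in KO livers (log2 change -2.40 ± 0.66, adjusted p = 0.028). The rest were the non-coding or uncharacterized genes Ncrna00086, BC018473, Mir690, Gm12718, Gm15387 and U8, beside Mirlet7b and Cyp2b10. Gm4956, named for its interaction, read 254, 186 and 381 in DEN_KO, against 652, 653 and 1673 in KO livers (log2 change -1.76 ± 0.40, adjusted p = 0.012), and its fall was larger in wild type (-7.04 ± 0.40 in log2, adjusted p = 2.7e-07, interaction 5.27 ± 0.57 in log2, adjusted p = 0.00055). Among the strongest rises not described above, Prom2, a relative of Prom1, read 193, 236 and 68 in DEN_KO, against 3, 2 and 6 in KO livers (log2 change 5.07 ± 0.49, adjusted p = 0.00035), and the gene 2310057J18Rik read 20, 291 and 43 in DEN_KO livers while it is listed at 0 in all 3 KO livers. The pseudogenes Gm7079 and Gm12563 read 169, 368 and 373 in DEN_KO, against 25, 41 and 8 in KO livers (log2 change 3.74 ± 0.48, adjusted p = 0.00082) and 220, 626 and 848 in DEN_KO, against 31, 50 and 29 in KO livers (log2 change 3.74 ± 0.78, adjusted p = 0.0082). In the SMYD and H3K4 methylation list of 19 genes, 0 were higher and 2 lower (0 and 6 at an unadjusted p under 0.05), Smyd3 and Setd1b, an H3K4 methyltransferase, with 530, 530 and 698 in DEN_KO, against 1136, 1384 and 670 in KO livers (log2 change -0.81 ± 0.23, adjusted p = 0.035) and overlapping groups. Zbtb16 lost its call without any 1 knockout library but DEN_KO 3 (adjusted p up to 0.1) and Ncrna00086 without DEN_KO 3 or KO 2 (up to 0.052). Gm4956 lost its call without DEN_KO 2 (0.056) and Setd1b without DEN_KO 1, DEN_KO 2, KO 1 or KO 2 (up to 0.13).

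Tested markers of other organs were too few for their shares to be read against the 8.91% higher and 6.02% lower over all genes. Of 5 fat cell genes tested 2 were higher, Cfd with 181, 62 and 21 in DEN_KO, against 18, 5 and 8 in KO livers (log2 change 2.65 ± 0.78, adjusted p = 0.038) and Fabp4 with 146, 257 and 142 in DEN_KO, against 71, 84 and 77 in KO livers (log2 change 1.17 ± 0.34, adjusted p = 0.035), and Car3, which hepatocytes also make, was lower with 135256, 42718 and 74355 in DEN_KO, against 195844, 185074 and 211318 in KO livers (log2 change -1.39 ± 0.44, adjusted p = 0.049). Of 3 gut and kidney genes tested 1 was higher, Vil1, an actin-bundling protein of microvilli, with 238, 390 and 98 in DEN_KO, against 27, 14 and 24 in KO livers (log2 change 3.26 ± 0.78, adjusted p = 0.016). Of 6 red cell, 3 exocrine pancreas and 2 skeletal muscle genes tested none was called in limma (2, 0 and 0 higher at an unadjusted p under 0.05). Cfd lost its call without DEN_KO 1, DEN_KO 2, KO 2 or KO 3 (adjusted p up to 0.15) and Fabp4 without any 1 knockout library (up to 0.14). Car3 lost its call without any 1 library but DEN_KO 1 or DEN_WT 2 (up to 0.19) and Vil1 without DEN_KO 2 or KO 2 (up to 0.068). Cfd and Car3 were not called after the GC and span correction (adjusted p = 0.095 and 0.059).

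Chromatin at the gene starts came from DEN-treated livers alone, so it describes where the changed genes lie and not a change with DEN. An H3K4me3 region, the mark of active promoters, of the DEN_KO list (17491 regions) lay within 1000 bases of the start of 56.7% of the genes higher in DEN_KO livers, 81.1% of those lower and 73.4% of those not past the threshold. Among protein-coding genes the shares were 74.2%, 87.7% and 80.5%. Peaks of the Smyd3 antiserum in DEN_WT livers (27324 regions) lay at the starts of 51.5% of the higher, 71.6% of the lower and 65.1% of the other genes, and at 65.1%, 77.8% and 71.2% of the protein-coding ones. Of the 15 higher interferon genes 12 had an H3K4me3 region of the DEN_KO list and 2 a Smyd3 peak, whereas of the 9 higher mitosis genes 6 and 8 did. Each list covers 2 replicates in 1 file with no score, so peak heights could not be compared. The higher genes are shorter and include more pseudogenes, and no test of these shares was made.

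Set beside wild type, the DEN effect of the knockout was partly shared. Of the 1468 genes higher in DEN_KO livers, 394 were also higher in DEN_WT livers, 26.8% of the knockout list and 14.8% of the wild-type list, and 280 genes were lower in both, 28.2% and 12.6%. Over all tested genes, 16.1% were higher and 13.5% lower with DEN in wild type. The median change of the 394 genes was 1.47 in the knockout and 2.48 in wild type, and the interaction was negative for 108 of them and positive for 1. Another 142 genes were higher with DEN in the knockout and lower in wild type, with medians of 0.94 and -0.86, and 27 were lower in the knockout and higher in wild type. Of the 932 genes called higher with the knockout only, the interaction was positive for 500, and of the 685 called lower with the knockout only it was negative for 167. For the rest of these 2 sets a difference between the genotypes was not shown. A further scaling, to equal sums without the 10 highest genes, moved the median change of all genes from near 0 to 0.36 in wild type and the median interaction to -0.35, so that 24.2% of the interaction calls were positive, against 52.7% as deposited, and 71.2% of the knockout calls were higher. Under the GC and span correction 58.4% of the interaction calls were positive. The 2 effects share no library and correlated across genes with Pearson's r of 0.392 and Spearman's rho of 0.298, as a description, since genes are not independent replicates.

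**Figure D5:**
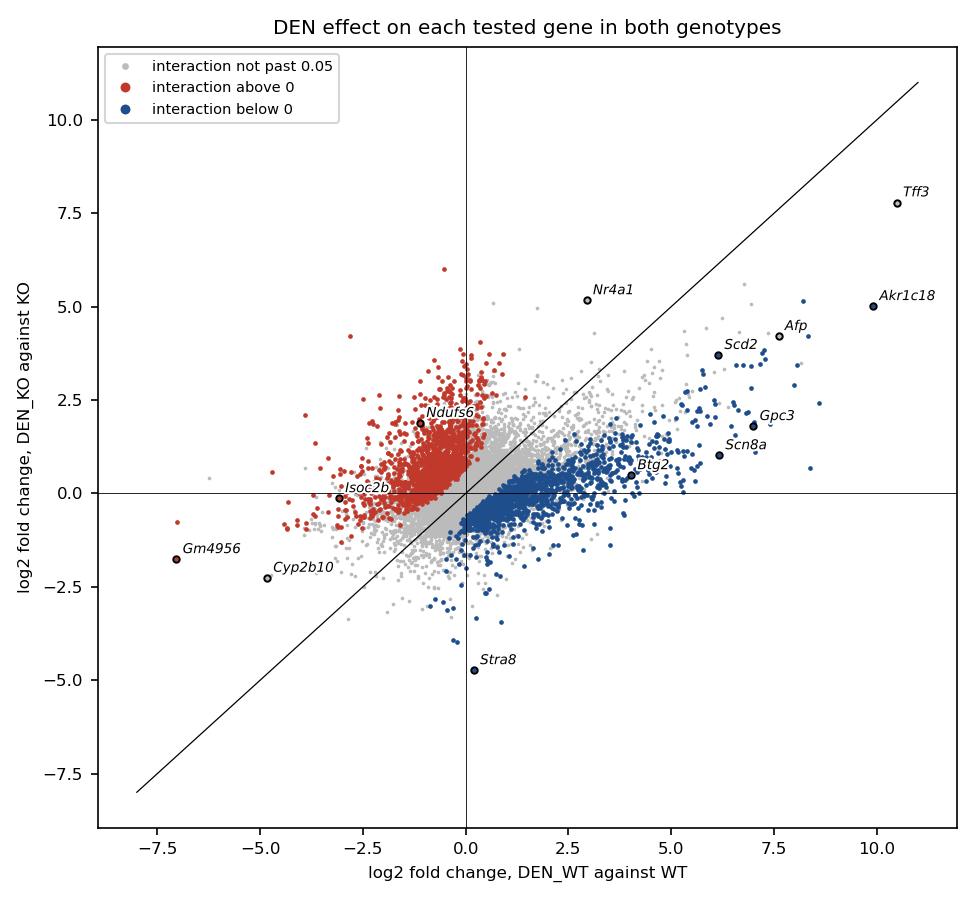
Log2 fold change of DEN in the knockout (y axis, DEN_KO over KO) against that in wild type (x axis, DEN_WT over WT) for 16471 genes, colored by the direction of the interaction at an adjusted p below 0.05; r is 0.392. Gpc3, Scn8a, Btg2 and Akr1c18 lie far below the diagonal, and Ndufs6 and Isoc2b lie above it.

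The remaining genes with the smallest interaction p-values were of the same kinds. Scn8a, a sodium channel, read 175, 236 and 117 in DEN_KO, against 78, 115 and 64 in KO livers (log2 change 1.02 ± 0.33, adjusted p = 0.055), and its effect in wild type was 6.16 ± 0.33 in log2, adjusted p = 2.2e-07 (interaction -5.15 ± 0.47 in log2, adjusted p = 0.00036). Npdc1 was higher in both genotypes, with 224, 342 and 228 in DEN_KO, against 170, 151 and 138 in KO livers (log2 change 0.76 ± 0.21, adjusted p = 0.031) and a difference of -2.75 ± 0.30 in log2, adjusted p = 0.00055. Sae1, a subunit of the SUMO-activating enzyme, read 563, 648 and 562 in DEN_KO, against 651, 546 and 485 in KO livers (log2 change 0.08 ± 0.15, adjusted p = 0.75) with a difference of -1.96 ± 0.22 in log2, adjusted p = 0.00055. Their DEN effects were smaller in the knockout. Isoc2b, a mitochondrial isochorismatase domain protein, read 410, 474 and 476 in DEN_KO, against 449, 620 and 439 in KO livers (log2 change -0.13 ± 0.17, adjusted p = 0.64) but was lower with DEN in wild type (-3.09 ± 0.17 in log2, adjusted p = 2.6e-07), a difference of 2.95 ± 0.24 in log2, adjusted p = 0.00022. The uncharacterized gene 0610011F06Rik rose in the knockout, with 2993, 2722 and 2708 in DEN_KO, against 1131, 1473 and 1527 in KO livers (log2 change 1.04 ± 0.15, adjusted p = 0.0011), and fell in wild type (-0.87 ± 0.15 in log2, adjusted p = 0.00072), a difference of 1.90 ± 0.21 in log2, adjusted p = 0.00055. Npdc1 lost its call without DEN_KO 2, KO 1, KO 2 or KO 3 (adjusted p up to 0.13). Npdc1 was not called after the GC and span correction (adjusted p = 0.13).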

How the data were processed

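Livers of 12 mice were measured by RNA-seq and livers of DEN-treated mice by chromatin immunoprecipitation. RNA was isolated on oligo(dT) beads, cut with RNase III and sequenced on an Ion Proton, per the labels' protocols. The submitters' processing notes name cutadapt, TopHat2 2.0.9, Cufflinks, Bowtie2 and DESeq, and the build mm9. How reads were counted and on which strand, which annotation was used and how peaks were called is not given in the sources used here, so overlapping and antisense genes cannot be told apart. Values are a score, the authors' read counts normalized and rounded to whole numbers, and they are not raw counts, so no count model was used. GC shares of genes are deposited by the authors as a fraction. Sums of values, 23163805 to 27251742 in the 6 knockout libraries, limit the precision. Genes with 10 or more in 3 or more libraries were tested on log2(value + 1), the log2 taken here of the authors' deposited values, with limma 3.58.1 in R 4.3.3 (4 groups in 1 fit, trend, Benjamini-Hochberg, 0.05), which was tested on simulated data. A single gene cannot reach below p = 0.1 in an exact two-sided test of 3 against 3. The replicates are labelled as separate mice. Genes are named if among the 15 largest rises or falls called with a mean of at least 50 and groups that do not overlap, as anchors or up to 4 further called members of a list, as the 10 smallest interaction p-values or 10 widest spreads, or where stated after their values were seen. The members and lists were chosen with earlier results of these data known. Columns outside the series numbered 0. Alternatives tried were pseudocounts, filters, scalings, the 6 knockout libraries alone, the spread model, library weights, the replicate number, each library left out, and, chosen after seeing the data, a spline correction for GC share and span with 4 degrees of freedom each.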

Additional observations from a re-analysis of the deposited data

Results flagged for a closer look

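The DEN effect differed between genotypes by the interaction term in limma for 71 of the 218 genes named, and the values of the 37 whose interaction the text gives are, in log2, the knockout effect of DEN less the wild-type one. For genes raised less in the knockout it was -4.90 for Akr1c18, -2.44 for Scd2, -5.20 for Gpc3, -2.76 for Spp1, -5.09 for Lcn2, -3.81 for Psat1, -4.65 for Phgdh, -4.12 for Igfbp1 and -3.42 for Cyp2a4. Among growth, damage and replication genes it was -1.99 for Mcm5, -1.02 for Ccng1, -3.52 for Cdkn1a, -3.55 for Btg2 and -2.51 for Myc. For interferon, B cell, matrix and vessel genes it was -1.64 for Oas1a, 1.40 for Bst2, 4.003 for Cd79b, -2.64 for Col1a1, -2.13 for Col3a1 and -2.14 for Cd34. Cd79b passed the filter only through the DEN_KO livers, where it is high, so its value is a description only. Among metabolic and respiratory chain genes it was 2.24 for Cyp2e1, 2.76 for Asl, 2.63 for Acaa1b, -2.19 for Sqle, 2.48 for Mup21, 2.99 for Ndufs6 and 2.68 for Uqcrq. For genes that fell with DEN in the knockout it was -3.75 for Mirlet7a-1, -4.94 for Stra8, -3.62 for Rhox8, -2.35 for Mdga1 and 5.27 for Gm4956. Of the remaining genes it was -5.15 for Scn8a, -2.75 for Npdc1, -1.96 for Sae1, 2.95 for Isoc2b and 1.90 for 0610011F06Rik. They stand among 2727 genes past the threshold, 16.6% of those tested.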

How the results depend on the processing

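No called change of the genes described reversed its direction under the alternatives run (pseudocounts, filters, scalings, fits and libraries left out). Of 157 genes called in the knockout, 71 kept their call under every alternative, 84 lost it without at least 1 library, 49 under another planned setting, 37 under the GC and span correction and 9 under the replicate block. Over all genes, library weights gave 5034 knockout calls and 4621 interaction calls, against 2460 and 2727 without weights. Leaving out 1 library gave 1170 to 2657 knockout calls, 3783 to 5356 wild-type calls and 1787 to 3084 interaction calls, and the cause was not tested. The replicate block gave 2180 knockout calls (2081 shared in direction), 4602 in wild type and 2463 for the interaction. Same-numbered DEN_KO and KO livers deviated together with r of -0.0475 to 0.0353, 0 of 3 pairs over 0.1, so the numbers were not taken to pair the mice. The share of higher knockout calls was 59.7%, 71.2% with equal sums without the 10 highest genes and 41.0% after the GC and span correction. In wild type that share was 54.5%, 84.3% and 37.8% in the same order. For the interaction it was 52.7%, 24.2% and 58.4%. The median change in wild type was 0.36 with equal sums, -0.11 with quantile normalization and -0.15 after the correction. Depth limits genes with values near the filter, and raw counts were not analysed here.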
